A study of Mus musculus with 56 samples.

Results

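The tricarboxylic acid (TCA) cycle and the supply of acetyl-CoA were followed through 37 genes, of 47937 listed in the count tables, in polarized CD4+ T cells of mice. The genes were chosen by name, as carriers and enzymes that bring pyruvate and citrate in and out of mitochondria, run the cycle or make acetyl-CoA, and each of the 37 matched 1 Ensembl identifier and passed the filter on low counts in both tables. The CD4+ T cells, taken from lymph nodes and spleens of C57BL/6 mice, were activated with anti-CD3, anti-CD28 and IL-2 and kept for 4 days under polarizing conditions before RNA sequencing. These were IL-12, IL-2 and anti-IL-4 for TH1 cells, IL-4, IL-2 and anti-IFN-γ for TH2 cells, IL-6, TGF-β, IL-1 and both antibodies for TH17 cells, and TGF-β, IL-2 and both antibodies for Treg cells. Libraries labelled Odc-/- came from Odc flox/flox mice and libraries labelled Dohh-/- from Dohh flox/flox mice that expressed Cre recombinase from the CD4 promoter, and the WT libraries were from mice without Cre. The Odc table held 4 libraries per group, other than TH2 cells labelled Odc-/- with 3 (their replicate 1 was not analysed here). The Dohh table held 3 libraries per group and WT libraries of its own. The CD4 promoter drives Cre in developing T cells, so that the deletions precede the cultures and are not limited to CD4+ cells. Replicates are called biological in the labels without naming the animals. The comparison of libraries labelled as deficient with WT asks how the transcripts of this pathway stood in cells that lack ornithine decarboxylase, which opens polyamine synthesis, or deoxyhypusine hydroxylase, which completes the polyamine-derived amino acid hypusine on the translation factor eIF5A.

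Pyruvate enters mitochondria through the carrier formed by MPC1 and MPC2 and is turned into acetyl-CoA by the pyruvate dehydrogenase complex, which pyruvate dehydrogenase kinases switch off and a phosphatase switches on. The cycle joins acetyl-CoA to oxaloacetate as citrate and oxidizes it back to oxaloacetate, while pyruvate carboxylase refills it and malic enzymes draw malate from it. Citrate that leaves through SLC25A1 is split by ATP-citrate lyase (ACLY) into cytosolic acetyl-CoA, the donor for lipid synthesis and histone acetylation, and acetyl-CoA synthetases make acetyl-CoA from acetate. Activated T cells are known for feeding the cycle from glucose and glutamine and for using citrate-derived acetyl-CoA in growth and chromatin modification.

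The libraries of the Odc table summed to 5905374 to 9145214 counts each and those of the Dohh table to 6572148 to 12576933, so that 3 counts, the limit that a count of 0 allows, stood for 0.239 to 0.508 CPM, which are counts scaled to a library of 1000000. Odc1 was called lower in TH17 cells labelled Odc-/- (log2 fold change -0.40, edgeR adjusted p = 0.0416) and did not pass in TH1, TH2 and Treg cells (0.26, -0.20 and 0.20), and Dohh was called higher in TH1, TH2 and Treg cells labelled Dohh-/- (log2 fold changes 1.10 to 1.43) and did not pass in TH17 cells (0.41). Dohh was also called higher in TH1, TH2, TH17 and Treg cells labelled Odc-/- (1.26, 1.17, 0.63 and 1.11). Odc1 was called higher in TH1 and Treg cells labelled Dohh-/- (0.63 and 0.67) and did not pass in TH2 and TH17 cells (0.04 and -0.39). Only some exons of each gene lie between the loxP sites, and counts per gene do not separate them from the rest. These values therefore do not check the labels. Tbx21, Gata3 and Foxp3, the factors that mark TH1, TH2 and Treg cells, were each highest in the WT libraries of their own subset in both tables, and all 8 T cell identity markers were detected. Both TH1 markers were also called higher in TH2, TH17 and Treg cells of both deficiencies, where they summed to 102 to 274 CPM (Odc-/-) and 142 to 1590 CPM (Dohh-/-) and to at most 44.9 CPM in WT of either table. The 2 Treg markers summed to 570.2 to 609.6 CPM in WT Treg cells of the Dohh table and to 91.2 to 208 CPM in those labelled Dohh-/-, with 1 called higher and 1 lower. Il17a and Il17f, cytokine genes of TH17 cells, were lower in TH17 cells labelled Odc-/- (log2 fold changes -1.67 and -0.95) and in TH2 cells labelled Odc-/- (-2.04 and -3.89), and Il17a was higher in Treg cells labelled Odc-/- (2.99) and in all 4 subsets labelled Dohh-/- (2.91, 3.97, 2.90 and 7.76). Markers of other cells moved with genotype. The 4 γδ T cell markers summed to 13.5 to 58.0 CPM in WT and 96.9 to 538 CPM in libraries labelled Odc-/-, and to 21.6 to 52.6 and 566 to 1264 CPM in the Dohh table, with 3 to 4 of 4 called higher in each comparison. The 8 basophil and mast cell markers summed to at most 46.5 CPM in WT and reached 332 CPM in libraries labelled Odc-/- and 1218 CPM in those labelled Dohh-/-, with 7 to 8 of 8 called higher in each comparison. The 8 myeloid markers summed to 21.9 to 41.0 CPM in WT of the Dohh table and to 4377 to 11569 CPM in 4 libraries labelled Dohh-/-, replicates 2 and 3 of TH17 and Treg cells, with 7 of 7 tested markers called higher in TH17 and 6 of 7 in TH2 and Treg cells, and Itgam at 0 in all libraries of that table. They also stood at 578 and 353 CPM in replicate 1 of TH17 and Treg cells labelled Dohh-/- and at 816 and 234 CPM in replicate 2 of TH2 and TH1 cells. Those of the Odc table reached 53.7 CPM in WT and 598 and 776 CPM in TH17 and Treg cells labelled Odc-/-, with 6 of 7 called higher in both. The 6 B cell markers summed to 34.4 to 251 CPM in WT and 114 to 1246 CPM in libraries labelled Odc-/-. Of these, 6 of 6 were called higher in TH1, TH2 and Treg cells and 1 in TH17 cells. In the Dohh table they summed to 49.2 to 294 CPM in WT and 11.9 to 848 CPM in libraries labelled Dohh-/-. There 0 to 2 of 5 tested were called higher. TH1 libraries labelled Dohh-/- lay below WT (11.9 to 36.5 against 49.2 to 65.4 CPM), with 1 marker called higher and 1 lower. Treg cells (561 to 848 against 281 to 294 CPM) and TH17 cells (361 to 440 against 241 to 259 CPM) went the other way. The TH2 groups overlapped. The 6 CD8 T and NK markers summed to 44.0 to 65.7 CPM in WT Treg cells and 281 to 413 CPM in those labelled Odc-/-, with 5 of 6 called higher, and to 41.8 to 58.9 and 494 to 597 CPM in Treg cells of the Dohh table, with 4 of 5 tested called higher. In the other subsets 2 to 4 of them were called higher and at most 1 lower in either table. The 8 T cell identity markers summed to 4005 to 5102 CPM in WT of the Dohh table and 1646 to 3409 CPM in libraries labelled Dohh-/-. Of these, 4 to 5 of 8 were called lower in each comparison and 1 higher, in TH17 cells. They summed to 2949 to 4471 CPM and 1989 to 3973 CPM in the Odc table, with 2 to 7 of 8 called lower. Mitochondrial transcripts made up 1.73% to 1.79%, 1.28% to 1.73% and 1.81% to 2.82% of counts in TH1, TH17 and Treg cells labelled Odc-/- and 1.39% to 1.67%, 0.994% to 1.25% and 0.844% to 1.45% in WT, without overlap. TH1 cells of the Dohh table had the opposite order, 0.470% to 0.882% in libraries labelled Dohh-/- and 1.21% to 1.45% in WT. The part of all these markers and shares in the results for the pathway was not tested, and called values in TH17 and Treg cells of the Dohh table are also given without those 4 libraries for the members and pathway genes described. In the groups of 4 libraries, which the Odc table alone has, 23 member values stood far from the other libraries of their group, 12 of them of WT replicate 4 and 6 of Odc-/- replicate 1, and groups of 3 were not examined in this way.

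Across the 8 comparisons 182 of the 296 member values passed an edgeR adjusted p-value below 0.05, taken over all genes tested. In the Odc table, 17 members were higher and 9 lower in libraries labelled Odc-/-, against 29.1% and 27.7% of all genes tested in TH1 cells. In TH2 cells 20 members were higher and 11 lower in libraries labelled Odc-/-, against 29.9% and 29.3% of all genes tested. In TH17 cells 8 members were higher and 11 lower in libraries labelled Odc-/-, against 25.6% and 22.2% of all genes tested. In Treg cells 10 members were higher and 10 lower in libraries labelled Odc-/-, against 32.9% and 26.9% of all genes tested. The members called higher were thus 45.9%, 54.1%, 21.6% and 27.0% of the 37 in TH1, TH2, TH17 and Treg cells. These shares were above that of all genes in TH1 and TH2 cells and below it in TH17 and Treg cells. The order in TH17 and Treg cells depended on the fit. Without the filter on low counts, 7 and 8 of the 37 were higher there, above the 11.4% and 15.9% of all genes. With the replicate number as a block, 14 of the 37 were higher in Treg cells, above the 34.8% of all genes. In TH17 cells 10 were, below 28.6%. Among TH1 cells of the Dohh table, 14 members were higher and 6 lower in libraries labelled Dohh-/-, against 25.9% and 24.1% of all genes tested. In TH2 cells of that table, 18 members were higher and 3 lower in libraries labelled Dohh-/-, against 23.8% and 21.5% of all genes tested. Its TH17 comparison gave 15 members higher and 7 lower in libraries labelled Dohh-/-, against 27.0% and 24.9% of all genes, and its Treg comparison 16 and 7, against 28.4% and 25.0%. With only the 2 groups compared in the fit, members higher were 6 in Treg cells labelled Odc-/- (26.8% of all genes under the same fit) and 6 in TH1 cells labelled Dohh-/- (16.6%), and members lower were 6 in TH2 cells labelled Dohh-/- (28.5%). Without the 4 libraries with high myeloid markers, which leaves 1 library labelled Dohh-/- per subset that is assumed to vary like the other groups, TH17 cells had 6 members higher and 5 lower against 13.7% and 13.5% of all genes, and Treg cells had 6 and 3 against 15.3% and 16.1%. On the log2 scale, of members that passed there Idh3a was at 1.42 and 1.44, Sdhb at 0.85 and 1.0 and Fh1 at 1.05 and 0.74 in TH17 and Treg cells, Mpc2 at 0.95 and Me2 at -1.42 in TH17 cells and Sdhc at 0.65 in Treg cells. In bulk samples a lower level can mean fewer cells of a type or less RNA per cell, and these cannot be told apart.

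The median absolute log2 fold change of the 37 was 0.42, 0.58, 0.36 and 0.37 in TH1, TH2, TH17 and Treg cells of the Odc table, where all genes had 0.51, 0.58, 0.42 and 0.54. The medians of the Dohh table were 0.43, 0.50, 0.49 and 0.57, against 0.71, 0.62, 0.70 and 0.73. The signed medians of the members were above 0 in each comparison, from 0.11 in Treg cells of the Odc table to 0.41 in TH2 cells of the Dohh table, where those of all genes lay between -0.00193 and 0.07 (0.07 in Treg cells of the Odc table). Past 2-fold were 6, 8, 4 and 7 members in TH1, TH2, TH17 and Treg cells of the Odc table, where 21.4%, 25.1%, 15.6% and 24.0% of all genes were, and 6, 8, 9 and 7 of the 37 in the Dohh table, against 29.1%, 25.9%, 31.4% and 32.7%. Libraries of both genotypes did not overlap for 22, 27, 19 and 16 members in the Odc table, where 43.3%, 61.1%, 41.1% and 45.8% of all genes did not, and for 19, 27, 25 and 30 members in the Dohh table, where 50.7%, 62.4%, 61.9% and 66.6% did not.

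Mpc2, Idh3a, Sdhb and Fh1 were higher in libraries labelled as deficient in all 8 comparisons, as were 6.10% of the 12924 genes tested in both tables, and Pdk1, Pdk2 and Pcx were lower in all 8, as were 4.84%. Pdha1 alone of the 37 was called in none, as were 4.53% of genes. Of the others, 9 of the 37 were called higher in some comparisons and lower in others, as were 18.7% of genes, namely Mpc1, Pdk3, Aco1, Idh1, Idh3b, Sdhc, Mdh1, Me2 and Acss1. Leaving out each library in turn kept 137 of the 182 calls, 54 of the 55 calls past 2-fold among them, and turned the direction of none of the 182.

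**Figure D1:**
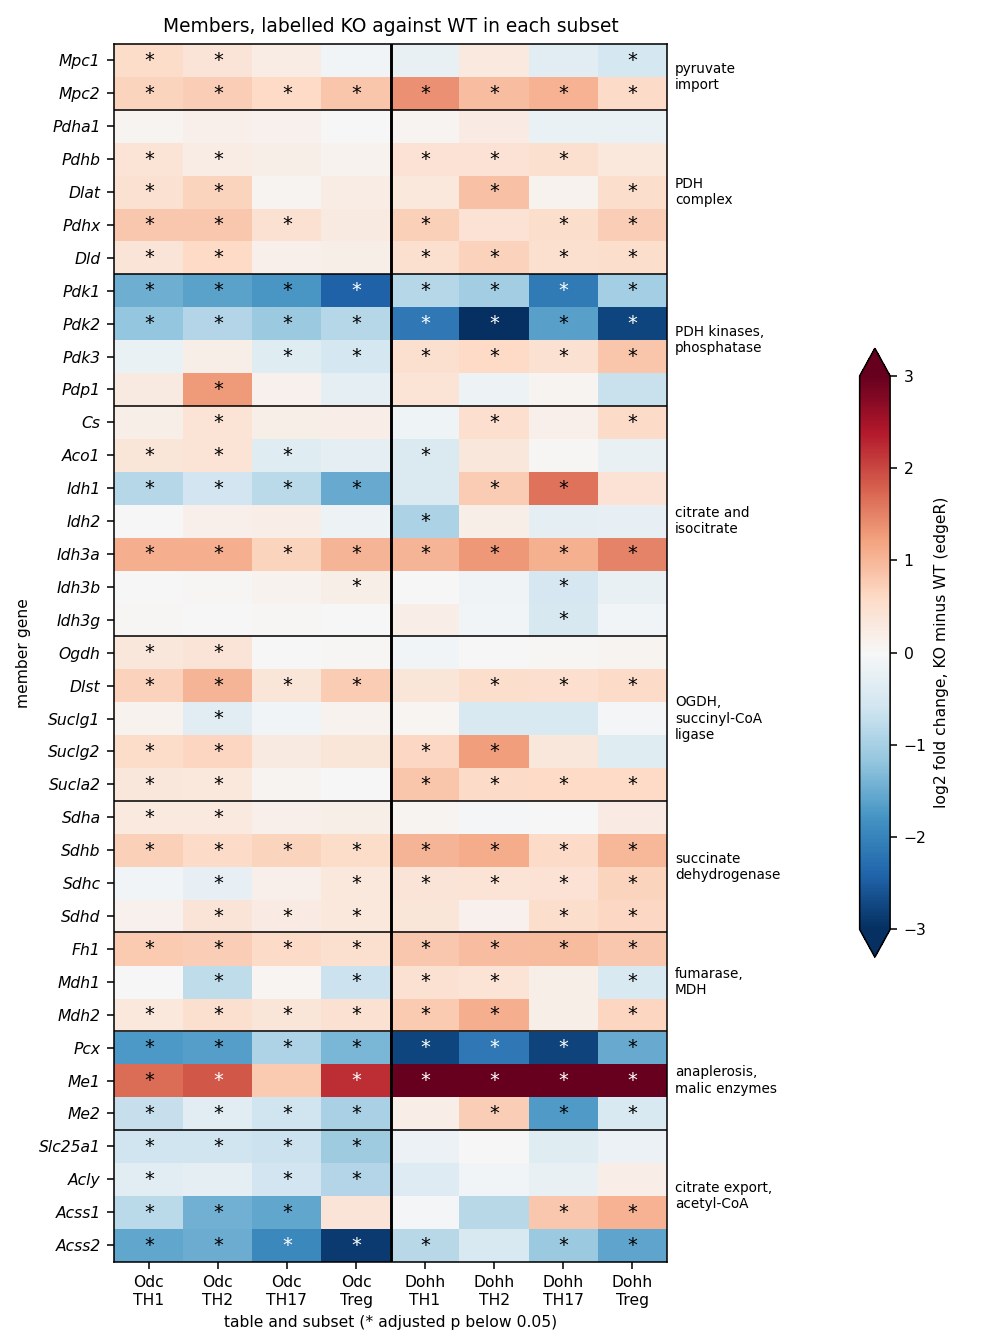
Log2 fold change of each of the 37 members (rows, grouped by role) in libraries labelled Odc-/- or Dohh-/- against WT of the same table and subset (columns), from edgeR, with an asterisk where the adjusted p-value was below 0.05; colors saturate at 3. Mpc2, Idh3a, Sdhb and Fh1 are red with an asterisk in all 8 columns, Pdk1, Pdk2 and Pcx are blue with an asterisk in all 8, and Me1 has the largest rises.

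Promoters of the members called in one direction in all 8 comparisons are shown because these genes share that pattern. They hold the 250 bases before the start site in RefSeq (GRCm38.p6), the most upstream start where several are listed, and no entry for Idh3a was found. By the gene positions given below, the Mpc2 window lies within the gene and the Sdhb window runs past the gene start. Of the 37 members 33 had at least 1 entry, 44 promoters in all. Capitals mark CCAAT and the E-box CACGTG on either strand, which do not overlap each other, so that CCAAT on the other strand reads ATTGG.
Mpc2 promoter, chr1:165461010-165461259, plus strand: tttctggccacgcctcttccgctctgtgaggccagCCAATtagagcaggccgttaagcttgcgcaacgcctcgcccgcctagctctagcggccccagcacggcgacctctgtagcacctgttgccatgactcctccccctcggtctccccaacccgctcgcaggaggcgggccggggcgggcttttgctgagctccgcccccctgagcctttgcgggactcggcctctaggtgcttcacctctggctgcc
Sdhb promoter, chr4:140961021-140961270, plus strand: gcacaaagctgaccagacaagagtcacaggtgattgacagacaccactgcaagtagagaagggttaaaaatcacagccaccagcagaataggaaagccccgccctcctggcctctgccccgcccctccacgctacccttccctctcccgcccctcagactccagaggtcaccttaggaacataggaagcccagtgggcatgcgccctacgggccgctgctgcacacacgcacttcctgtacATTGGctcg
Fh1 promoter, chr1:175625636-175625885, minus strand: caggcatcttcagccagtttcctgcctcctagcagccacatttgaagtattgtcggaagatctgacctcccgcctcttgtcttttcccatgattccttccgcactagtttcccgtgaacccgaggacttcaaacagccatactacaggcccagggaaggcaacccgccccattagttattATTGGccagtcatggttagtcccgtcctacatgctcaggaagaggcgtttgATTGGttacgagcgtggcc
Pdk1 promoter, chr2:71872974-71873223, plus strand: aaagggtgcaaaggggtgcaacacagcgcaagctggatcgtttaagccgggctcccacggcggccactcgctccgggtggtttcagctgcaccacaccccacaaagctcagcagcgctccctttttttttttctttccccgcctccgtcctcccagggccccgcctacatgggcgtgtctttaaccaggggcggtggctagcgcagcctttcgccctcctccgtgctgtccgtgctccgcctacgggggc
Pdk2 promoter, chr11:95041372-95041621, minus strand: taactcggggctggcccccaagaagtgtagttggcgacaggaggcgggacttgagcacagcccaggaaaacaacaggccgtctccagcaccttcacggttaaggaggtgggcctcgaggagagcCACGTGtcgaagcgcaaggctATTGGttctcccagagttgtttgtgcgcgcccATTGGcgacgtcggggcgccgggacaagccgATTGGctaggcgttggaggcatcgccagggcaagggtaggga
Pcx promoter, chr19:4510222-4510471, plus strand: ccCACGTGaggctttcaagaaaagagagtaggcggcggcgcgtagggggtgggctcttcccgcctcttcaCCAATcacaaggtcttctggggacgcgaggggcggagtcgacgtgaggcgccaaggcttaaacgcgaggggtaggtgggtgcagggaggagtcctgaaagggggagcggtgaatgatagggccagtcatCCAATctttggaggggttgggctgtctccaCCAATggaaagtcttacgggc

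CCAAT stood in 23 of the 44 member promoters (52.3%) and in 33.8% of all 32851 promoters of this length, and CACGTG in 6 of the 44 (13.6%) and 6.02% of all. Windows of 1 gene can overlap, as those of Ogdh do, and by gene CCAAT was held by 20 of 33 members (60.6%) and 37.5% of all genes, and CACGTG by 4 of 33 (12.1%) and 6.86% of all. Mpc2, Sdhb and Fh1, which were higher, and Pdk2 and Pcx, which were lower, each held CCAAT, and Pdk2 and Pcx also held CACGTG. Neither the NRF1 palindrome nor TCAAGGTCA, the half-site of estrogen-related receptors, was in any member promoter on either strand, and 0.782% and 0.387% of all promoters held them. These are matches of letters in a fixed window and were not tested against expression.

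Of the 2 subunits of the mitochondrial pyruvate carrier, Mpc2 rose in all 8 comparisons and Mpc1 in 2. Mpc2 (ENSMUSG00000026568.6, chr1:165460637-165481214, plus strand, GRCm38) in TH1 cells of the Odc table was at 18.1, 17.2, 18.6 and 25.2 CPM in WT and 25.8, 35.2, 30.4 and 34.0 CPM in libraries labelled Odc-/-. In TH2 cells Mpc2 was at 14.9, 20.7, 16.7 and 21.6 CPM in WT and 31.3, 31.5 and 29.2 CPM in libraries labelled Odc-/-. All libraries labelled Odc-/- were above all WT libraries in both subsets. In TH17 cells Mpc2 was at 23.2, 18.6, 19.1 and 24.3 CPM in WT and 26.4, 33.3, 36.9 and 32.3 CPM in libraries labelled Odc-/-. Treg cells held Mpc2 at 18.5, 21.2, 16.5 and 21.3 CPM in WT and 33.8, 32.8, 39.2 and 32.3 CPM in libraries labelled Odc-/-. The groups again did not overlap, and the log2 fold changes of Mpc2 in the Odc table were 0.67 ± 0.14, 0.73 ± 0.15, 0.60 ± 0.14 and 0.83 ± 0.14 (SE) in TH1, TH2, TH17 and Treg cells, with edgeR adjusted p-values of 0.000234, 0.000152, 0.000959 and 1.04e-05. Mpc2 in TH1 cells of the Dohh table was at 17.2, 18.6 and 22 CPM in WT and 43.3, 75.4 and 30.4 CPM in libraries labelled Dohh-/-. For TH2 cells, Mpc2 was at 16, 26.9 and 20.7 CPM in WT and 36.4, 41.5 and 42.1 CPM in libraries labelled Dohh-/-. Here too the lowest library labelled Dohh-/- was above the highest WT library. TH17 cells had Mpc2 at 27.8, 30.9 and 24.5 CPM in WT and 53.3, 50.5 and 68.6 CPM in libraries labelled Dohh-/-. The Treg values of Mpc2 were 30.4, 40.5 and 34.9 CPM in WT and 50.8, 51.7 and 55.7 CPM in libraries labelled Dohh-/-. Every WT Treg library lay above every WT TH1 library, and the log2 fold changes were 1.36 ± 0.24, 0.92 ± 0.24, 1.05 ± 0.24 and 0.58 ± 0.24 (SE) in TH1, TH2, TH17 and Treg cells, with edgeR adjusted p-values of 0.000109, 0.00394, 0.00105 and 0.0419. Mpc1, the partner subunit, was higher in TH1 and TH2 cells labelled Odc-/- (0.55 and 0.38) and lower in Treg cells labelled Dohh-/- (-0.53, adjusted p = 0.0179), and its other 5 values, -0.34 to 0.29, did not pass. Of the exon length of Mpc1 23.1% overlaps a gene on the opposite strand, and the strand setting of the counting was not given in the sources used here. Mpc1 lost its call in TH2 cells of the Odc table without WT replicate 2 or 3 or Odc-/- replicate 3 (adjusted p 0.0692 to 0.0929) and in Treg cells of the Dohh table without WT replicate 2 (adjusted p = 0.0546). A call of Mpc1 was gained in TH17 cells of the Dohh table without Dohh-/- replicate 2 (adjusted p = 0.0117). Mpc2 lost its call in Treg cells of the Dohh table without any 1 of the 6 libraries (adjusted p 0.0572 to 0.201). Mpc1 in Treg cells (-0.58, adjusted p = 0.0643) and Mpc2 in Treg cells (0.49, adjusted p = 0.289) did not pass on the 1 library labelled Dohh-/- left per subset without those with high myeloid markers.

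**Figure D2:**
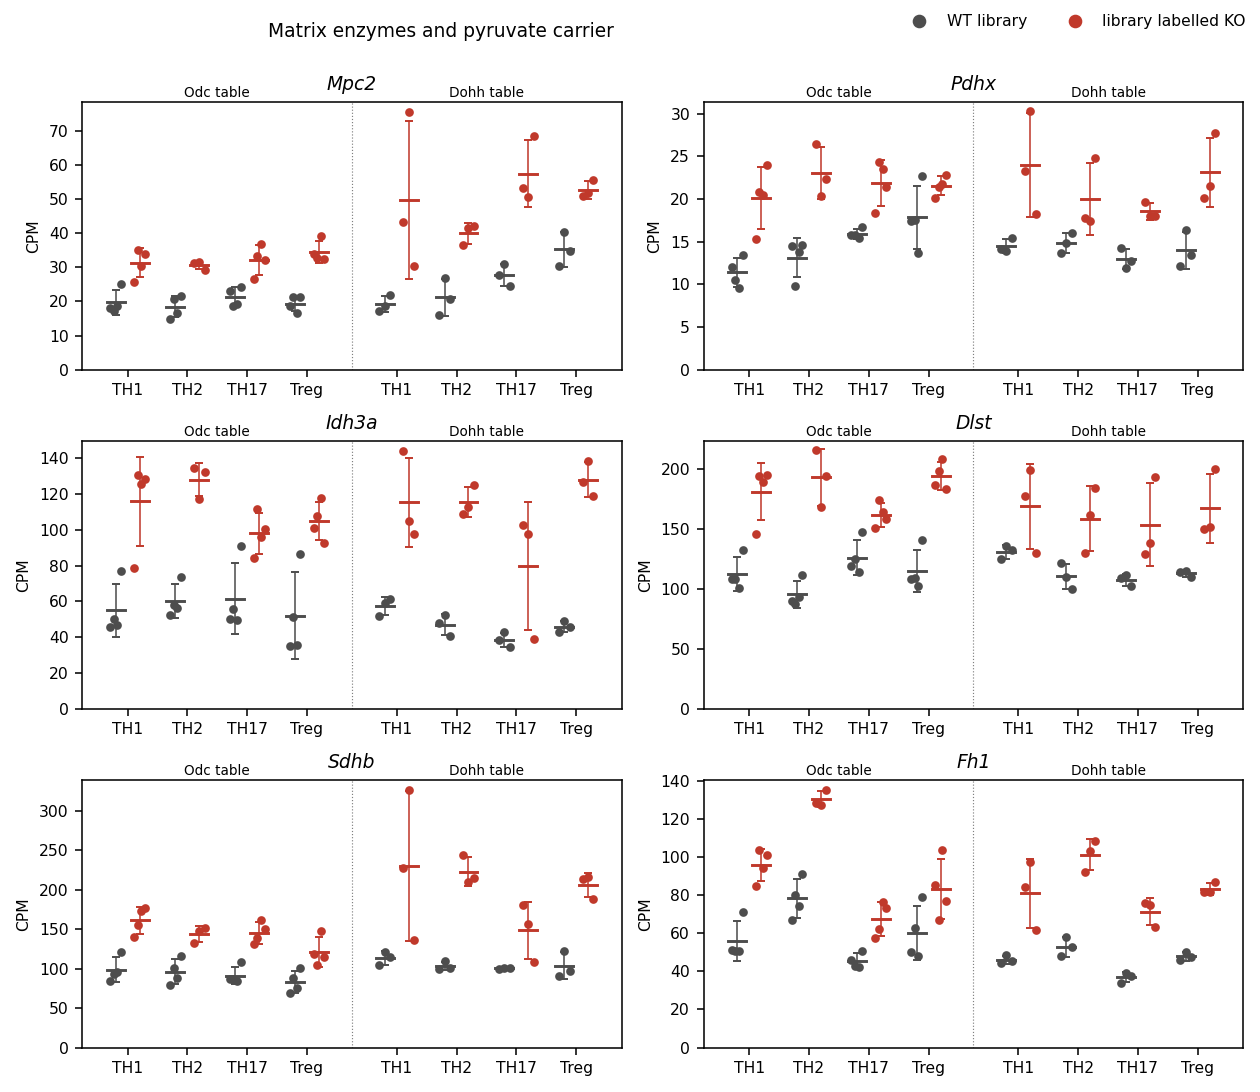
CPM of 6 members in every library (points) of the Odc table (left of each panel) and the Dohh table (right), with group means and SD (bars), WT in grey and libraries labelled as deficient in red; axes start at 0. Red points of Mpc2 and Sdhb lie above the grey points in all 8 pairs of groups, and those of Idh3a overlap in TH17 cells of both tables.

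Subunits of the pyruvate dehydrogenase complex were higher where they were called, and no subunit was called lower. Pdhb, the β subunit of the E1 component that decarboxylates pyruvate, was higher in 5 comparisons (0.23 to 0.47). Pdha1, its α subunit, ranged from -0.20 to 0.26 and passed in none of the 8, and 16.1% of its exon length overlaps a gene on the opposite strand. Dlat, the E2 acetyltransferase, was higher in TH1 and TH2 cells labelled Odc-/- (0.46 and 0.66) and in TH2 and Treg cells labelled Dohh-/- (0.89 and 0.52). Dld, the E3 subunit that 2-oxoglutarate dehydrogenase shares, was higher in 6 comparisons, 0.40 and 0.59 in TH1 and TH2 cells labelled Odc-/- and 0.47 to 0.68 in the 4 subsets labelled Dohh-/-. The subunit with the largest mean change was Pdhx, which anchors E3 to the core (ENSMUSG00000010914.10, chr2:103021075-103073513, minus strand). In TH1 cells, Pdhx was at 12, 10.5, 9.58 and 13.5 CPM in WT and 15.3, 20.8, 20.4 and 23.9 CPM in libraries labelled Odc-/-. In TH2 cells, Pdhx was at 14.4, 9.74, 13.8 and 14.6 CPM in WT and 26.4, 20.4 and 22.3 CPM in libraries labelled Odc-/-. The groups were apart in both subsets. In TH17 cells, Pdhx was at 15.8, 15.8, 15.4 and 16.7 CPM in WT and 18.3, 24.3, 23.5 and 21.3 CPM in libraries labelled Odc-/-. In Treg cells, Pdhx was at 17.4, 17.6, 13.7 and 22.7 CPM in WT and 20.1, 21.4, 21.7 and 22.8 CPM in libraries labelled Odc-/-. WT replicate 4 of the Treg cells was within the range of the libraries labelled Odc-/-, and the log2 fold changes of Pdhx were 0.82 ± 0.15, 0.81 ± 0.16, 0.46 ± 0.15 and 0.27 ± 0.15 (SE) in TH1, TH2, TH17 and Treg cells, with edgeR adjusted p-values of 8.64e-05, 0.000129, 0.0136 and 0.113. Pdhx in TH1 cells of the Dohh table stood at 14.2, 13.8 and 15.4 CPM in WT and 23.3, 30.3 and 18.2 CPM in libraries labelled Dohh-/-. Its TH2 values were 13.7, 14.8 and 16 CPM in WT and 17.7, 17.4 and 24.8 CPM in libraries labelled Dohh-/-. Every library labelled Dohh-/- was above WT in these subsets, also in TH2 cells, where the test was not passed. In TH17 cells of this table Pdhx was at 14.2, 11.9 and 12.7 CPM in WT and 19.7, 18 and 18 CPM in libraries labelled Dohh-/-. Pdhx in Treg cells was at 12.1, 16.4 and 13.4 CPM in WT and 20.1, 21.5 and 27.7 CPM in libraries labelled Dohh-/-. Groups did not overlap, and the log2 fold changes were 0.72 ± 0.19, 0.43 ± 0.19, 0.52 ± 0.19 and 0.73 ± 0.19 (SE) in TH1, TH2, TH17 and Treg cells, with edgeR adjusted p-values of 0.0041, 0.0744, 0.0303 and 0.00335. Pdhb lost its call in TH2 cells of the Odc table without WT replicate 1, 2 or 3 or Odc-/- replicate 2 or 3 (adjusted p 0.0578 to 0.0882) and in TH1 cells of the Dohh table without WT replicate 1 or 2 or Dohh-/- replicate 2 (adjusted p 0.0597 to 0.0774). Pdhb also lost it in TH2 cells of the Dohh table without WT replicate 1 or 2 or Dohh-/- replicate 3 (adjusted p 0.0629 to 0.0841). A call of Pdhb was gained in TH17 cells of the Odc table without WT replicate 4 (adjusted p = 0.0208). A call of Dlat was gained in Treg cells of the Odc table without WT replicate 4 (adjusted p = 0.0417) and in TH1 cells of the Dohh table without Dohh-/- replicate 2 or 3 (adjusted p 0.038 to 0.0486). Pdhx lost its call in TH17 cells of the Dohh table without WT replicate 2 or 3 or Dohh-/- replicate 1 (adjusted p 0.0761 to 0.102). A call of Pdhx was gained in Treg cells of the Odc table without WT replicate 4 (adjusted p = 0.0196). Dld lost its call in Treg cells of the Dohh table without Dohh-/- replicate 3 (adjusted p = 0.0561). A call of Dld was gained in Treg cells of the Odc table without WT replicate 4 (adjusted p = 0.012). Pdhb in TH17 cells (0.40, adjusted p = 0.151), Dlat in Treg cells (0.39, adjusted p = 0.171), Pdhx in TH17 cells (0.61, adjusted p = 0.107), Pdhx in Treg cells (0.49, adjusted p = 0.184), Dld in TH17 cells (0.35, adjusted p = 0.202) and Dld in Treg cells (0.39, adjusted p = 0.148) did not pass on the 1 library labelled Dohh-/- left per subset without those with high myeloid markers.

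Of the regulators of the complex, the kinases Pdk1 and Pdk2 fell in all 8 comparisons, and Pdk3 fell or rose with the table. Pdk1, which phosphorylates and so inactivates E1, fell from 378 ± 78.0 CPM (SD, n = 4) in WT Treg cells to 70.8 ± 23.6 CPM (SD, n = 4) in those labelled Odc-/-. Its log2 fold changes were -1.46 ± 0.32, -1.60 ± 0.35, -1.74 ± 0.32 and -2.42 ± 0.33 (SE) in TH1, TH2, TH17 and Treg cells, with edgeR adjusted p-values of 0.000401, 0.000397, 0.000118 and 1e-06. WT TH17 cells of the Dohh table were at 208 ± 28.3 CPM (SD, n = 3) and those labelled Dohh-/- at 47.2 ± 16.6 CPM (SD, n = 3). Pdk1 changed there by -0.86 ± 0.24, -1.04 ± 0.24, -2.13 ± 0.25 and -1.02 ± 0.24 (SE) in TH1, TH2, TH17 and Treg cells, with edgeR adjusted p-values of 0.00623, 0.00172, 1.15e-06 and 0.00151. No library labelled as deficient reached the lowest WT library of its subset in either table. Replicate 1 labelled Odc-/- of the Odc table was at 214 CPM in TH1 and 199 CPM in TH17 cells, where the other 3 replicates of Pdk1 were at 73.8 to 98.1 CPM and 54.2 to 90.3 CPM. Pdk2, another kinase of the complex (ENSMUSG00000038967.13, chr11:95026258-95041354, minus strand), was less abundant. In TH1 cells, Pdk2 was at 7.37, 5.69, 7.40 and 4.74 CPM in WT and 3.62, 3.44, 2.67 and 1.54 CPM in libraries labelled Odc-/-. In TH2 cells, Pdk2 was at 8.20, 7.07, 8.15 and 7.0 CPM in WT and 4.64, 3.82 and 4.00 CPM in libraries labelled Odc-/-. The groups were apart in both. In TH17 cells, Pdk2 was at 7.19, 6.91, 9.72 and 5.34 CPM in WT and 2.66, 3.81, 3.99 and 3.12 CPM in libraries labelled Odc-/-. In Treg cells, Pdk2 was at 10.9, 11.1, 13.2 and 5.71 CPM in WT and 4.62, 5.54, 4.40 and 8.08 CPM in libraries labelled Odc-/-. WT replicate 4 of Treg cells fell within the range of the libraries labelled Odc-/-, and Pdk2 changed by -1.16 ± 0.27, -0.87 ± 0.28, -1.11 ± 0.26 and -0.85 ± 0.24 (SE) in TH1, TH2, TH17 and Treg cells, with edgeR adjusted p-values of 0.000717, 0.00838, 0.00115 and 0.00353. Pdk2 in TH1 cells of the Dohh table stood at 10.6, 13.2 and 10.3 CPM in WT and 2.15, 1.26 and 4.08 CPM in libraries labelled Dohh-/-. Its level in TH2 cells was 23.6, 17.4 and 16.3 CPM in WT and 3.36, 2.85 and 0.848 CPM in libraries labelled Dohh-/-. The largest fall of Pdk2 was in these TH2 cells. TH17 cells had Pdk2 at 28.4, 27.7 and 26.3 CPM in WT and 10.1, 8.84 and 7.71 CPM in libraries labelled Dohh-/-. Treg cells had Pdk2 at 23.6, 25 and 25.2 CPM in WT and 4.86, 4.54 and 1.55 CPM in libraries labelled Dohh-/-. Every library labelled Dohh-/- was below WT, and the log2 fold changes were -2.15 ± 0.40, -3.01 ± 0.40, -1.62 ± 0.36 and -2.75 ± 0.38 (SE) in TH1, TH2, TH17 and Treg cells, with edgeR adjusted p-values of 0.000155, 5.27e-06, 0.00083 and 5.38e-06.

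Pdk3, the third kinase measured, was higher in all 4 subsets labelled Dohh-/-, with log2 fold changes of 0.47 ± 0.13, 0.60 ± 0.13, 0.45 ± 0.13 and 0.84 ± 0.13 (SE) in TH1, TH2, TH17 and Treg cells, with edgeR adjusted p-values of 0.00403, 0.000685, 0.00539 and 1.36e-05. In the Odc table Pdk3 was instead lower in TH17 and Treg cells (-0.37 and -0.53) and did not pass in TH1 and TH2 cells (-0.20 and 0.18). Pdp1, the catalytic subunit of the phosphatase that reactivates the complex, rose in TH2 cells labelled Odc-/- (log2 fold change 1.27, SE 0.15, adjusted p = 1.81e-07) and passed in no other comparison (-0.66 to 0.40). WT TH2 cells held Pdp1 at 12 ± 1.33 CPM (SD, n = 4), and TH2 cells labelled Odc-/- were at 28.9 ± 3.72 CPM (SD, n = 3). Without the 4 libraries with high myeloid markers, Pdk1 in Treg cells changed by -0.78 (adjusted p = 0.0592) and in TH17 cells by -1.77 (adjusted p = 0.000794). With that 1 library per subset Pdk2 was at -1.43 (adjusted p = 0.0287) in TH17 and -2.37 (adjusted p = 0.00196) in Treg cells, and Pdk3 was at 0.55 (adjusted p = 0.0364) and 0.78 (adjusted p = 0.0041). A call of Pdk3 was gained in TH2 cells of the Odc table without WT replicate 4 (adjusted p = 0.0491). A call of Pdp1 was gained in Treg cells of the Odc table without WT replicate 3 or Odc-/- replicate 1 (adjusted p 0.0197 to 0.0242) and in TH1 cells of the Dohh table without Dohh-/- replicate 2 (adjusted p = 0.0349).

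**Figure D3:**
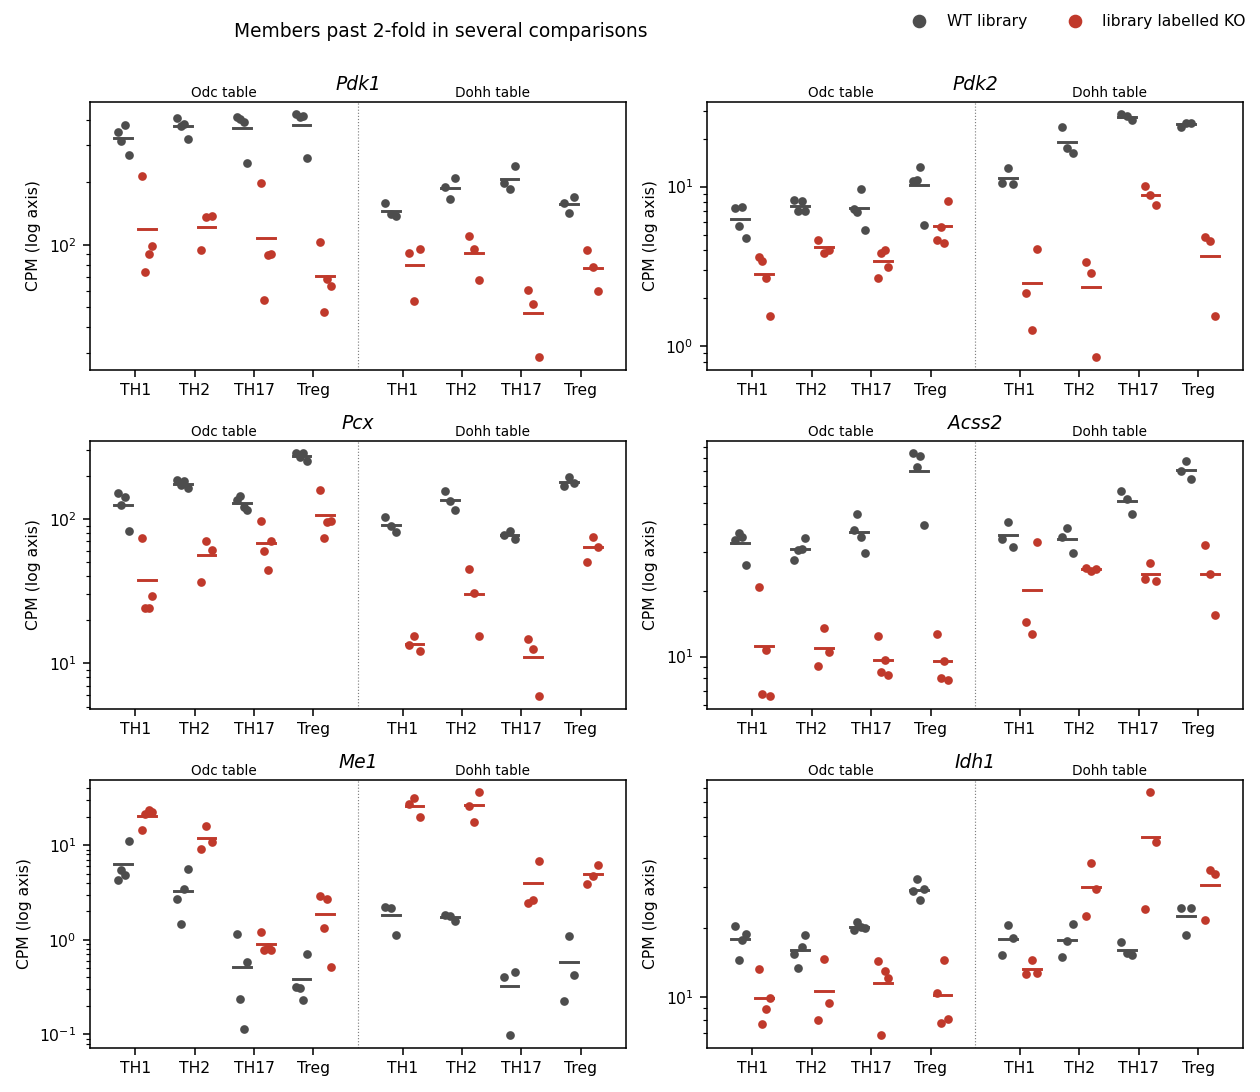
CPM on a log axis of 6 members in every library (points) of the Odc table (left of each panel) and the Dohh table (right), with group means (bars), WT in grey and libraries labelled as deficient in red. Pdk1 and Pcx are lower in red in all 8 pairs of groups, Me1 is higher in red from a low WT level in TH17 and Treg cells, and Idh1 is lower in the Odc table and higher in TH2 and TH17 cells of the Dohh table.

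Among the enzymes that make and oxidize citrate, Idh3a rose in all 8 comparisons, and Idh1 fell in the Odc table and rose in TH2 and TH17 cells of the Dohh table. Cs, citrate synthase, was higher in TH2 cells of both tables (0.42 and 0.50) and in Treg cells labelled Dohh-/- (0.58). Aco1, the cytosolic aconitase and iron regulatory protein, was higher in TH1 and TH2 cells labelled Odc-/- (0.37 and 0.41) and lower in TH17 cells labelled Odc-/- (-0.36) and TH1 cells labelled Dohh-/- (-0.44). Idh3a encodes the catalytic subunit of the NAD-dependent isocitrate dehydrogenase of the cycle (ENSMUSG00000032279.10, chr9:54586334-54604661, plus strand). In TH1 cells, Idh3a was at 45.7, 50.4, 46.7 and 77.0 CPM in WT and 78.5, 131, 126 and 129 CPM in libraries labelled Odc-/-. In TH2 cells, Idh3a was at 52.3, 58.2, 56.4 and 73.9 CPM in WT and 135, 117 and 132 CPM in libraries labelled Odc-/-. Replicate 1 labelled Odc-/- in TH1 cells lay close above WT replicate 4, and the groups did not overlap in either subset. In TH17 cells, Idh3a was at 50, 56.0, 49.5 and 90.7 CPM in WT and 84.3, 112, 96.2 and 100.3 CPM in libraries labelled Odc-/-. In Treg cells, Idh3a was at 35, 51.3, 35.4 and 86.7 CPM in WT and 101, 108, 118 and 92.8 CPM in libraries labelled Odc-/-. WT replicate 4 was the highest WT library in each of the 4 subsets and overlapped the other group in TH17 cells. Idh3a changed in the Odc table by 1.08 ± 0.23, 1.09 ± 0.25, 0.67 ± 0.23 and 1.01 ± 0.23 (SE) in TH1, TH2, TH17 and Treg cells, with edgeR adjusted p-values of 0.000376, 0.000522, 0.0188 and 0.000572. Idh3a in TH1 cells of the Dohh table stood at 51.6, 59.2 and 61.1 CPM in WT and 144, 105 and 97.6 CPM in libraries labelled Dohh-/-. Its TH2 level was 47.8, 52.5 and 40.8 CPM in WT and 109, 113 and 125 CPM in libraries labelled Dohh-/-. The libraries labelled Dohh-/- were above WT in both. TH17 cells had Idh3a at 38.3, 42.6 and 34.5 CPM in WT and 103, 97.9 and 38.7 CPM in libraries labelled Dohh-/-. Treg cells had Idh3a at 42.6, 48.8 and 45.7 CPM in WT and 127, 138 and 119 CPM in libraries labelled Dohh-/-. Replicate 3 labelled Dohh-/- of TH17 cells lay within WT, and the log2 fold changes were 1.01 ± 0.24, 1.30 ± 0.24, 1.06 ± 0.24 and 1.49 ± 0.24 (SE) in TH1, TH2, TH17 and Treg cells, with edgeR adjusted p-values of 0.00131, 0.000182, 0.000945 and 2.8e-05. Idh3b, with 0.146% of its exon length on the opposite strand of another gene, and Idh3g, the other subunits of the same enzyme, were called in 2 and 1 comparisons. Idh3b passed in Treg cells labelled Odc-/- (0.18) and in TH17 cells labelled Dohh-/- (-0.50), and Idh3g in the latter alone (-0.49).

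Idh1, the cytosolic NADP-dependent isocitrate dehydrogenase, was lower in all 4 subsets labelled Odc-/-, with log2 fold changes of -0.84 ± 0.21, -0.58 ± 0.23, -0.80 ± 0.21 and -1.52 ± 0.21 (SE) in TH1, TH2, TH17 and Treg cells, with edgeR adjusted p-values of 0.00137, 0.0306, 0.00245 and 7.34e-07. Treg cells changed most, from 28.8, 32.3, 26.3 and 29.2 CPM in WT to 10.4, 7.71, 14.5 and 8.08 CPM. In the Dohh table Idh1 was instead higher in TH2 cells (log2 fold change 0.76, SE 0.29, adjusted p = 0.0376) and TH17 cells (log2 fold change 1.62, SE 0.29, adjusted p = 0.000135) and did not pass in TH1 and Treg cells (-0.43 and 0.44). TH17 cells of that table had Idh1 at 17.3, 15.5 and 15.2 CPM in WT and 23.9, 76.9 and 46.7 CPM in libraries labelled Dohh-/-. The last 2 of these libraries hold the high myeloid markers, and without them and their Treg counterparts the change of Idh1 in TH17 cells was 0.58 (adjusted p = 0.118). Idh2, the mitochondrial NADP-dependent enzyme, was lower in TH1 cells labelled Dohh-/- (log2 fold change -0.96, adjusted p = 0.000292) and passed in no other comparison (-0.29 to 0.19). A call of Cs was gained in TH17 cells of the Odc table without WT replicate 4 (adjusted p = 0.0254) and in Treg cells of the Odc table without WT replicate 4 or Odc-/- replicate 2 or 4 (adjusted p 0.0024 to 0.044). Aco1 lost its call in TH1 cells of the Odc table without WT replicate 1, 2 or 3 or Odc-/- replicate 2 or 3 (adjusted p 0.0513 to 0.1) and in TH2 cells of the Odc table without WT replicate 1, 2 or 3 or Odc-/- replicate 2 or 4 (adjusted p 0.053 to 0.0865). Aco1 also lost it in TH17 cells of the Odc table without WT replicate 2 or 4 or Odc-/- replicate 2, 3 or 4 (adjusted p 0.0601 to 0.147) and in TH1 cells of the Dohh table without WT replicate 1 or 2 or Dohh-/- replicate 2 or 3 (adjusted p 0.071 to 0.151). A call of Aco1 was gained in Treg cells of the Odc table without WT replicate 1 or 3 (adjusted p 0.0265 to 0.0282). Idh1 lost its call in TH2 cells of the Odc table without WT replicate 4 or Odc-/- replicate 2 or 4 (adjusted p 0.0784 to 0.179) and in TH2 cells of the Dohh table without WT replicate 1 or 2 or Dohh-/- replicate 2 or 3 (adjusted p 0.0717 to 0.182). Idh3a lost its call in TH17 cells of the Odc table without WT replicate 1, 2 or 3 or Odc-/- replicate 2 (adjusted p 0.0507 to 0.0651). Idh3b lost its call in TH17 cells of the Dohh table without Dohh-/- replicate 3 (adjusted p = 0.0811). Idh3g lost its call in TH17 cells of the Dohh table without WT replicate 1 or 2 or Dohh-/- replicate 3 (adjusted p 0.096 to 0.261). Among the other members of this group Cs in Treg cells (0.55, adjusted p = 0.0509), Idh3b in TH17 cells (-0.26, adjusted p = 0.346) and Idh3g in TH17 cells (-0.33, adjusted p = 0.35) did not pass on the 1 library labelled Dohh-/- left per subset without those with high myeloid markers.

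The 2-oxoglutarate dehydrogenase and succinyl-CoA steps were represented by 5 members, of which Dlst rose in 7 comparisons. Ogdh, the E1 component, was higher in TH1 and TH2 cells labelled Odc-/- (0.33 and 0.38) and between -0.09 and 0.08 in the other 6 comparisons, none of which passed. Dlst is the E2 succinyltransferase of the same complex (ENSMUSG00000004789.9, chr12:85110833-85134845, plus strand). In TH1 cells, Dlst was at 108, 108, 100.3 and 133 CPM in WT and 145, 194, 189 and 195 CPM in libraries labelled Odc-/-. In TH2 cells, Dlst was at 89.5, 87.1, 93.0 and 111 CPM in WT and 216, 168 and 194 CPM in libraries labelled Odc-/-. TH2 cells showed the larger gap, and neither pair of groups overlapped. In TH17 cells, Dlst was at 119, 124, 114 and 147 CPM in WT and 150.4, 174, 164 and 158 CPM in libraries labelled Odc-/-. In Treg cells, Dlst was at 108, 109, 103 and 141 CPM in WT and 186, 198, 208 and 183 CPM in libraries labelled Odc-/-. All libraries labelled Odc-/- were above WT, and Dlst changed by 0.69 ± 0.12, 1.02 ± 0.12, 0.36 ± 0.11 and 0.75 ± 0.11 (SE) in TH1, TH2, TH17 and Treg cells, with edgeR adjusted p-values of 2.62e-05, 3.66e-07, 0.0121 and 3.99e-06. Dlst in TH1 cells of the Dohh table stood at 125, 136 and 132 CPM in WT and 177, 199 and 129.8 CPM in libraries labelled Dohh-/-. Its TH2 libraries were at 121, 109.8 and 99.9 CPM in WT and 129.6, 161 and 184 CPM in libraries labelled Dohh-/-. The TH1 groups overlapped and the TH2 groups did not. TH17 cells had Dlst at 109, 112 and 102 CPM in WT and 129, 138 and 193 CPM in libraries labelled Dohh-/-. Treg cells had Dlst at 114, 115 and 109.6 CPM in WT and 149.8, 151 and 199.8 CPM in libraries labelled Dohh-/-. These groups were apart, and Dlst changed by 0.37 ± 0.17, 0.52 ± 0.17, 0.51 ± 0.17 and 0.57 ± 0.17 (SE) in TH1, TH2, TH17 and Treg cells, with edgeR adjusted p-values of 0.0851, 0.0195, 0.0185 and 0.00958. Of the succinyl-CoA ligase subunits, the ADP-specific Sucla2 was higher in all 4 subsets labelled Dohh-/- (0.58 to 0.82) and in TH1 and TH2 cells labelled Odc-/- (0.34 and 0.32). The GTP-specific Suclg2 was higher in TH1 and TH2 cells of both tables, by 0.55 and 0.63 with Odc-/- labels and by 0.62 and 1.26 with Dohh-/- labels, and did not pass in TH17 or Treg cells. Suclg1, the α subunit common to both forms, was lower in TH2 cells labelled Odc-/- (-0.32). Dlst lost its call in TH2 cells of the Dohh table without WT replicate 2 or 3 or Dohh-/- replicate 2 or 3 (adjusted p 0.0515 to 0.11) and in TH17 cells of the Dohh table without WT replicate 3 or Dohh-/- replicate 3 (adjusted p 0.0646 to 0.128). Dlst also lost it in Treg cells of the Dohh table without WT replicate 3 or Dohh-/- replicate 3 (adjusted p 0.0519 to 0.107). A call of Dlst was gained in TH1 cells of the Dohh table without Dohh-/- replicate 3 (adjusted p = 0.00998). Suclg1 lost its call in TH2 cells of the Odc table without Odc-/- replicate 2 (adjusted p = 0.0854). A call of Suclg1 was gained in TH17 cells of the Dohh table without Dohh-/- replicate 1 (adjusted p = 0.0257). Suclg2 lost its call in TH1 cells of the Dohh table without Dohh-/- replicate 1 (adjusted p = 0.0539). A call of Suclg2 was gained in Treg cells of the Odc table without WT replicate 4 (adjusted p = 0.000251) and in Treg cells of the Dohh table without WT replicate 1 or Dohh-/- replicate 3 (adjusted p 0.0155 to 0.0279). Sucla2 lost its call in TH2 cells of the Odc table without Odc-/- replicate 2 (adjusted p = 0.0668) and in TH2 cells of the Dohh table without WT replicate 1 or 2 or Dohh-/- replicate 2 or 3 (adjusted p 0.0611 to 0.12). Sucla2 also lost it in TH17 cells of the Dohh table without WT replicate 3 (adjusted p = 0.0912) and in Treg cells of the Dohh table without WT replicate 1 or 3 or Dohh-/- replicate 3 (adjusted p 0.0786 to 0.195). Dlst in TH17 cells (0.27, adjusted p = 0.398), Dlst in Treg cells (0.37, adjusted p = 0.208), Sucla2 in TH17 cells (0.62, adjusted p = 0.105) and Sucla2 in Treg cells (0.42, adjusted p = 0.266) did not pass on the 1 library labelled Dohh-/- left per subset without those with high myeloid markers.

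Of the 4 subunits of succinate dehydrogenase, which oxidizes succinate and feeds the respiratory chain, Sdhb rose in all comparisons. Sdhb encodes the iron-sulfur subunit (ENSMUSG00000009863.14, chr4:140961203-140979193, plus strand). In TH1 cells, Sdhb was at 84.2, 93.7, 95.6 and 121 CPM in WT and 139.8, 155, 173 and 177 CPM in libraries labelled Odc-/-. In TH2 cells, Sdhb was at 79.8, 101, 88.2 and 116 CPM in WT and 132, 147 and 151 CPM in libraries labelled Odc-/-. The lowest library labelled Odc-/- was above the highest WT library in both. In TH17 cells, Sdhb was at 86.8, 86.5, 84.2 and 108 CPM in WT and 131, 139, 162 and 150.0 CPM in libraries labelled Odc-/-. In Treg cells, Sdhb was at 69.2, 87.9, 75.9 and 101 CPM in WT and 119, 104, 148 and 115 CPM in libraries labelled Odc-/-. The Treg groups lay close, at 101 CPM for the highest WT library and 104 CPM for the lowest labelled Odc-/-, and Sdhb changed by 0.71 ± 0.13, 0.58 ± 0.14, 0.67 ± 0.13 and 0.54 ± 0.13 (SE) in TH1, TH2, TH17 and Treg cells, with edgeR adjusted p-values of 8.55e-05, 0.00114, 0.000243 and 0.00107. Sdhb in TH1 cells of the Dohh table stood at 105, 122 and 115 CPM in WT and 227, 326 and 137 CPM in libraries labelled Dohh-/-. Its TH2 counterparts were at 100.1, 109 and 101 CPM in WT and 245, 210.2 and 215 CPM in libraries labelled Dohh-/-. Replicates labelled Dohh-/- spread widely in TH1 cells. TH17 cells had Sdhb at 99.1, 101 and 100.4 CPM in WT and 181, 157 and 109 CPM in libraries labelled Dohh-/-. Treg cells had Sdhb at 91.3, 123 and 97.5 CPM in WT and 213, 216 and 189 CPM in libraries labelled Dohh-/-. No groups overlapped, and Sdhb changed by 1.02 ± 0.22, 1.11 ± 0.22, 0.57 ± 0.22 and 0.99 ± 0.22 (SE) in TH1, TH2, TH17 and Treg cells, with edgeR adjusted p-values of 0.000653, 0.000372, 0.0325 and 0.000732. Sdha, the flavoprotein subunit, was higher in TH1 and TH2 cells labelled Odc-/- (0.28 and 0.30) and passed in none of the Dohh comparisons (-0.03 to 0.24). Sdhc, a membrane anchor, was higher in all 4 subsets labelled Dohh-/- (0.39 to 0.66), higher in Treg cells labelled Odc-/- (0.31) and lower in TH2 cells labelled Odc-/- (-0.25). Sdhd, the other anchor, was higher in TH2, TH17 and Treg cells labelled Odc-/- (0.40, 0.23 and 0.31) and in TH17 and Treg cells labelled Dohh-/- (0.53 and 0.62). Sdha lost its call in TH2 cells of the Odc table without Odc-/- replicate 4 (adjusted p = 0.0608). A call of Sdha was gained in TH17 cells of the Odc table without Odc-/- replicate 3 (adjusted p = 0.0142) and in Treg cells of the Odc table without Odc-/- replicate 3 (adjusted p = 0.0394). Sdhb lost its call in TH17 cells of the Dohh table without WT replicate 1, 2 or 3 or Dohh-/- replicate 1 or 2 (adjusted p 0.0736 to 0.158). Sdhc lost its call in TH2 cells of the Odc table without WT replicate 3 or 4 or Odc-/- replicate 2 or 4 (adjusted p 0.0555 to 0.108) and in TH1 cells of the Dohh table without WT replicate 1 or Dohh-/- replicate 2 (adjusted p 0.0537 to 0.123). Sdhc also lost it in TH2 cells of the Dohh table without WT replicate 3 or Dohh-/- replicate 1 (adjusted p 0.0619 to 0.0774). Sdhd lost its call in TH17 cells of the Dohh table without WT replicate 1 or Dohh-/- replicate 3 (adjusted p 0.0501 to 0.0613) and in Treg cells of the Dohh table without Dohh-/- replicate 3 (adjusted p = 0.052). A call of Sdhd was gained in TH1 cells of the Dohh table without Dohh-/- replicate 3 (adjusted p = 0.0316). Sdhc in TH17 cells (0.38, adjusted p = 0.152), Sdhd in TH17 cells (0.29, adjusted p = 0.369) and Sdhd in Treg cells (0.46, adjusted p = 0.136) did not pass on the 1 library labelled Dohh-/- left per subset without those with high myeloid markers.

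Fh1 and Mdh2, which carry fumarate through malate to oxaloacetate in mitochondria, were higher in 8 and 7 comparisons. Fh1 encodes fumarase (ENSMUSG00000026526.14, chr1:175600374-175625635, minus strand). In TH1 cells, Fh1 was at 51.0, 50.5, 50.5 and 71.4 CPM in WT and 84.7, 104, 94.3 and 101 CPM in libraries labelled Odc-/-. In TH2 cells, Fh1 was at 67.1, 80.2, 74.4 and 91.3 CPM in WT and 128, 127 and 135 CPM in libraries labelled Odc-/-. WT replicate 4 was the highest WT library in both and still below the libraries labelled Odc-/-. In TH17 cells, Fh1 was at 46.1, 42.8, 42.3 and 50.8 CPM in WT and 57.7, 62.3, 76.4 and 73.4 CPM in libraries labelled Odc-/-. In Treg cells, Fh1 was at 50.2, 62.8, 48.0 and 79.1 CPM in WT and 85.5, 66.9, 104 and 76.9 CPM in libraries labelled Odc-/-. In Treg cells WT replicate 4 overlapped the other group, and Fh1 changed by 0.78 ± 0.15, 0.74 ± 0.15, 0.57 ± 0.15 and 0.47 ± 0.15 (SE) in TH1, TH2, TH17 and Treg cells, with edgeR adjusted p-values of 8.54e-05, 0.000233, 0.00282 and 0.00688. Fh1 in TH1 cells of the Dohh table stood at 44.3, 48.4 and 45.4 CPM in WT and 84.1, 97.4 and 61.4 CPM in libraries labelled Dohh-/-. Its TH2 samples were at 47.8, 58.2 and 52.6 CPM in WT and 92.3, 103 and 108 CPM in libraries labelled Dohh-/-. Libraries labelled Dohh-/- were above WT in both. TH17 cells had Fh1 at 34.0, 39.2 and 37.5 CPM in WT and 76.0, 74.6 and 63.0 CPM in libraries labelled Dohh-/-. Treg cells had Fh1 at 45.8, 50.3 and 47.4 CPM in WT and 81.8, 81.4 and 86.8 CPM in libraries labelled Dohh-/-. The groups were apart, and Fh1 changed by 0.81 ± 0.14, 0.94 ± 0.14, 0.95 ± 0.15 and 0.80 ± 0.14 (SE) in TH1, TH2, TH17 and Treg cells, with edgeR adjusted p-values of 0.000108, 3e-05, 2.16e-05 and 0.0001. Mdh2, mitochondrial malate dehydrogenase, was higher in the 4 subsets labelled Odc-/- (0.31 to 0.49) and in TH1, TH2 and Treg cells labelled Dohh-/- (0.79, 1.10 and 0.65). Mdh1, its cytosolic counterpart, with 2.03% of its exon length on the opposite strand of another gene, was lower in TH2 and Treg cells labelled Odc-/- (-0.77 and -0.64) and in Treg cells labelled Dohh-/- (-0.46), and higher in TH1 and TH2 cells labelled Dohh-/- (0.46 and 0.41). Mdh1 lost its call in TH1 cells of the Dohh table without WT replicate 1 or 2 or Dohh-/- replicate 2 (adjusted p 0.0661 to 0.104) and in TH2 cells of the Dohh table without WT replicate 1 or 3 or Dohh-/- replicate 1 or 3 (adjusted p 0.0522 to 0.184). Mdh2 lost its call in TH1 cells of the Odc table without WT replicate 1, 2 or 3 or Odc-/- replicate 2, 3 or 4 (adjusted p 0.0574 to 0.115) and in TH17 cells of the Odc table without WT replicate 1 or 3 or Odc-/- replicate 4 (adjusted p 0.0517 to 0.0616). Mdh2 also lost it in Treg cells of the Dohh table without WT replicate 1 or 3 or Dohh-/- replicate 2 (adjusted p 0.0647 to 0.08). Mdh1 in Treg cells (-0.36, adjusted p = 0.234) and Mdh2 in Treg cells (0.67, adjusted p = 0.0671) did not pass on the 1 library labelled Dohh-/- left per subset without those with high myeloid markers, and Fh1 was there at 1.05 (adjusted p = 0.00142) in TH17 and 0.74 (adjusted p = 0.013) in Treg cells.

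Of the enzymes that refill or drain the cycle, Pcx fell and Me1 rose past 2-fold in most comparisons, and Me1 in TH2 cells labelled Dohh-/- had the largest fold of the 37. Pcx, pyruvate carboxylase, which makes oxaloacetate from pyruvate, fell in all 8 comparisons. Its log2 fold changes in the Odc table were -1.73 ± 0.29, -1.65 ± 0.32, -0.93 ± 0.28 and -1.36 ± 0.28 (SE) in TH1, TH2, TH17 and Treg cells, with edgeR adjusted p-values of 3.39e-05, 0.000109, 0.00933 and 0.000205. WT TH1 cells had Pcx at 125 ± 30.5 CPM (SD, n = 4) and those labelled Odc-/- at 37.9 ± 24.2 CPM (SD, n = 4), with replicate 1 at 74.0 CPM and the other 3 at 24.1 to 29.4 CPM. In the Dohh table Pcx changed by -2.74 ± 0.30, -2.15 ± 0.29, -2.78 ± 0.30 and -1.51 ± 0.28 (SE) in TH1, TH2, TH17 and Treg cells, with edgeR adjusted p-values of 4.39e-07, 5.75e-06, 3.65e-07 and 0.000126. TH17 cells there fell from 77.7 ± 4.84 CPM (SD, n = 3) to 11.1 ± 4.65 CPM (SD, n = 3). No library labelled as deficient reached the lowest WT library of its subset. Me1, the cytosolic NADP-dependent malic enzyme that turns malate into pyruvate (ENSMUSG00000032418.15, chr9:86581371-86695953, minus strand), went the other way. In TH1 cells, Me1 was at 4.33, 5.41, 4.79 and 11 CPM in WT and 14.3, 21.3, 23.5 and 22.7 CPM in libraries labelled Odc-/-. In TH2 cells, Me1 was at 2.69, 1.47, 3.47 and 5.54 CPM in WT and 9.14, 15.8 and 10.9 CPM in libraries labelled Odc-/-. The libraries labelled Odc-/- were above WT in both, with log2 fold changes of 1.68 ± 0.36 and 1.86 ± 0.40 (SE) in TH1 and TH2 cells, with edgeR adjusted p-values of 0.000297 and 0.000292. In TH17 cells, Me1 was at 1.16, 0.234, 0.113 and 0.581 CPM in WT and 1.20, 0.789, 0.832 and 0.781 CPM in libraries labelled Odc-/-. In Treg cells, Me1 was at 0.318, 0.310, 0.230 and 0.699 CPM in WT and 2.91, 1.33, 2.72 and 0.521 CPM in libraries labelled Odc-/-. These WT values stand on 18 counts in all in TH17 and 14 in Treg cells, and the groups overlapped. The ratio of summed counts was 1.73 (95% interval from counting error 0.915 to 3.36) in TH17 and 4.82 (2.66 to 9.36) in Treg cells, and edgeR passed the latter (adjusted p = 0.00173) and not the former (0.315). Me1 in TH1 cells of the Dohh table stood at 2.24, 2.19 and 1.12 CPM in WT and 27.0, 31.6 and 19.9 CPM in libraries labelled Dohh-/-. Its TH2 groups were at 1.81, 1.8 and 1.57 CPM in WT and 25.8, 17.6 and 36.3 CPM in libraries labelled Dohh-/-. The groups were apart in both, with log2 fold changes of 3.79 ± 0.44 and 3.93 ± 0.44 (SE) in TH1 and TH2 cells, with edgeR adjusted p-values of 9.07e-07 and 7.05e-07. TH17 cells had Me1 at 0.404, 0.0976 and 0.462 CPM in WT and 2.43, 2.65 and 6.80 CPM in libraries labelled Dohh-/-. Treg cells had Me1 at 0.226, 1.09 and 0.426 CPM in WT and 3.87, 4.75 and 6.19 CPM in libraries labelled Dohh-/-. WT counts summed to 10 and 17, the groups did not overlap, and the ratios of summed counts were 11.0 (5.76 to 23.7) in TH17 and 9.69 (5.84 to 17.1) in Treg cells, with adjusted p = 2.75e-05 and 2.5e-05 in edgeR. Of the exon length of Me1 0.780% overlaps a gene on the opposite strand. Me2, the mitochondrial NAD-dependent malic enzyme, was lower in the 4 subsets labelled Odc-/- (-0.69, -0.35, -0.60 and -0.97 in TH1, TH2, TH17 and Treg cells). In the Dohh table Me2 fell in TH17 and Treg cells (-1.70 and -0.46) and rose in TH2 cells (0.74). Me2 lost its call in TH2 cells of the Odc table without WT replicate 1 or 4 or Odc-/- replicate 2 or 3 (adjusted p 0.051 to 0.208) and in Treg cells of the Dohh table without Dohh-/- replicate 2 or 3 (adjusted p 0.053 to 0.0852). Leaving out WT replicate 2 moved the fitted log2 fold change of Me1 in Treg cells of the Dohh table from 3.18 to 3.84, and leaving out WT replicate 1 moved it in TH17 cells of the Odc table from 0.77 to 1.5, values that depend on the prior count at such low levels. Without the 4 libraries with high myeloid markers Me2 in Treg cells was at -0.28 (adjusted p = 0.348), Pcx was at -2.38 (adjusted p = 0.00041) in TH17 and -1.88 (adjusted p = 0.00129) in Treg cells, and Me1 was at 2.89 (adjusted p = 0.00422) and 2.81 (adjusted p = 0.00168), each on 1 library labelled Dohh-/-.

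Of the 4 members of citrate export and acetyl-CoA supply, 4, 3, 4 and 3 were lower in TH1, TH2, TH17 and Treg cells labelled Odc-/-, where 27.7%, 29.3%, 22.2% and 26.9% of all genes were, and Acly in TH2 and Acss1 in Treg cells did not pass. Acss2 alone of them was lower in libraries labelled Dohh-/-, in TH1, TH17 and Treg cells, and Acss1 was higher there in TH17 and Treg cells. Slc25a1, the citrate carrier, was lower in all 4 subsets labelled Odc-/- (-0.59, -0.59, -0.64 and -1.06 in TH1, TH2, TH17 and Treg cells) and passed in none labelled Dohh-/- (-0.36 to 0.02). Acly makes acetyl-CoA from the exported citrate (ENSMUSG00000020917.17, chr11:100476353-100528000, minus strand). In TH1 cells, Acly was at 465, 505, 399.8 and 444 CPM in WT and 405, 328, 365 and 341 CPM in libraries labelled Odc-/-. In TH2 cells, Acly was at 479, 461, 435 and 466 CPM in WT and 358, 375 and 415 CPM in libraries labelled Odc-/-. The TH1 groups overlapped and the TH2 groups did not. In TH17 cells, Acly was at 418, 462, 400.0 and 513 CPM in WT and 359, 281, 253 and 301 CPM in libraries labelled Odc-/-. In Treg cells, Acly was at 379.6, 481, 356 and 555 CPM in WT and 265, 223, 241 and 239 CPM in libraries labelled Odc-/-. Every library labelled Odc-/- was below WT in TH17 and Treg cells, and Acly changed by -0.33 ± 0.12, -0.27 ± 0.13, -0.59 ± 0.12 and -0.87 ± 0.12 (SE) in TH1, TH2, TH17 and Treg cells, with edgeR adjusted p-values of 0.0189, 0.0769, 0.000313 and 9.4e-07. Acly in TH1 cells of the Dohh table stood at 443, 491 and 353 CPM in WT and 385, 283 and 315 CPM in libraries labelled Dohh-/-. Its TH2 values ran at 375, 306 and 259.7 CPM in WT and 272, 286 and 335 CPM in libraries labelled Dohh-/-. The groups overlapped in both. TH17 cells had Acly at 255, 229 and 239 CPM in WT and 269, 240.0 and 113 CPM in libraries labelled Dohh-/-. Treg cells had Acly at 270.0, 269 and 303 CPM in WT and 349, 358 and 263 CPM in libraries labelled Dohh-/-. All 4 pairs of groups overlapped, and Acly changed by -0.39 ± 0.23, -0.08 ± 0.23, -0.22 ± 0.23 and 0.20 ± 0.23 (SE) in TH1, TH2, TH17 and Treg cells, with edgeR adjusted p-values of 0.163, 0.807, 0.444 and 0.466. The 95% interval of the log2 fold change of Acly, from its standard error, was -0.84 to 0.06 in TH1, -0.52 to 0.37 in TH2, -0.66 to 0.23 in TH17 and -0.24 to 0.65 in Treg cells labelled Dohh-/-.

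Acetate is activated to acetyl-CoA by ACSS2 in cytosol and nucleus and by ACSS1 in mitochondria. Acss2 (ENSMUSG00000027605.18, chr2:155517948-155585724, plus strand) in TH1 cells of the Odc table was at 34.1, 36.6, 35 and 26.1 CPM in WT and 20.7, 6.75, 10.7 and 6.58 CPM in libraries labelled Odc-/-. In TH2 cells, Acss2 was at 27.5, 30.7, 30.9 and 34.5 CPM in WT and 9.01, 13.5 and 10.5 CPM in libraries labelled Odc-/-. The groups were apart in both. In TH17 cells, Acss2 was at 37.9, 44.8, 35.2 and 29.7 CPM in WT and 12.4, 8.55, 9.65 and 8.20 CPM in libraries labelled Odc-/-. In Treg cells, Acss2 was at 84.5, 73.5, 82.5 and 39.7 CPM in WT and 12.7, 7.95, 9.58 and 7.82 CPM in libraries labelled Odc-/-. Treg cells had the highest WT level and the largest fall, and Acss2 changed by -1.57 ± 0.27, -1.49 ± 0.29, -1.93 ± 0.27 and -2.88 ± 0.27 (SE) in TH1, TH2, TH17 and Treg cells, with edgeR adjusted p-values of 3.03e-05, 0.000109, 4.78e-06 and 2.58e-09. Acss2 in TH1 cells of the Dohh table stood at 34.3, 41.2 and 31.6 CPM in WT and 14.3, 12.6 and 33.2 CPM in libraries labelled Dohh-/-. Its TH2 readings were 35.2, 38.4 and 29.6 CPM in WT and 25.3, 24.7 and 25 CPM in libraries labelled Dohh-/-. In TH1 cells 1 library labelled Dohh-/- lay within WT, and in TH2 cells the groups were apart although the test was not passed. TH17 cells had Acss2 at 56.8, 52.1 and 44.8 CPM in WT and 22.5, 26.6 and 22.2 CPM in libraries labelled Dohh-/-. Treg cells had Acss2 at 70.0, 77.7 and 64.6 CPM in WT and 32.1, 23.8 and 15.5 CPM in libraries labelled Dohh-/-. Acss2 changed in this table by -0.83 ± 0.27, -0.46 ± 0.27, -1.11 ± 0.27 and -1.57 ± 0.27 (SE) in TH1, TH2, TH17 and Treg cells, with edgeR adjusted p-values of 0.0148, 0.164, 0.00176 and 5.89e-05. Acss1 was lower in TH1, TH2 and TH17 cells labelled Odc-/- (-0.81, -1.45 and -1.56) and higher in TH17 and Treg cells labelled Dohh-/- (0.81 and 1.03), and did not pass in Treg cells labelled Odc-/- (0.38) or in TH1 and TH2 cells labelled Dohh-/- (-0.05 and -0.83). Genes on the opposite strand overlap 9.12% of the exon length of Acss2 and 2.74% of that of Acss1. A call of Slc25a1 was gained in TH17 cells of the Dohh table without Dohh-/- replicate 1 (adjusted p = 0.0334). Acly lost its call in TH1 cells of the Odc table without WT replicate 2 or Odc-/- replicate 2 or 4 (adjusted p 0.052 to 0.0697). A call of Acly was gained in TH2 cells of the Odc table without Odc-/- replicate 4 (adjusted p = 0.0496). Acss1 lost its call in TH1 cells of the Odc table without WT replicate 1 or 3 or Odc-/- replicate 2, 3 or 4 (adjusted p 0.0818 to 0.196) and in TH17 cells of the Dohh table without WT replicate 1, 2 or 3 or Dohh-/- replicate 3 (adjusted p 0.0598 to 0.31). Acss1 also lost it in Treg cells of the Dohh table without WT replicate 2 or Dohh-/- replicate 2 (adjusted p 0.0584 to 0.0771). A call of Acss1 was gained in TH1 cells of the Dohh table without Dohh-/- replicate 3 (adjusted p = 0.00898) and in TH2 cells of the Dohh table without WT replicate 2 (adjusted p = 0.0462). Acss2 lost its call in TH1 cells of the Dohh table without WT replicate 2 or Dohh-/- replicate 1 or 2 (adjusted p 0.0694 to 0.099). Acss1 in TH17 cells (0.25, adjusted p = 0.713) and Acss1 in Treg cells (0.82, adjusted p = 0.165) did not pass on the 1 library labelled Dohh-/- left per subset without those with high myeloid markers, and Acss2 was there at -1.18 (adjusted p = 0.0255) in TH17 and -1.17 (adjusted p = 0.022) in Treg cells.

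In WT cells 27 of the 37 members differed among the 4 subsets of the Odc table (73.0%, against 71.1% of all genes) and 15 in the Dohh table (40.5%, against 40.1%), by edgeR's test on 3 degrees of freedom. Per kilobase of exon, Mdh1 had the highest mean WT level in both tables (104 and 97.5 CPM per kb), followed by Sdhd (89.6 and 90.7), and Me1 had the lowest (0.687 and 0.291). The members that differed among subsets in both tables numbered 12 (32.4%, against 37% of the 12924 genes tested in both), and 4 of them, Mpc1, Suclg2, Mdh1 and Me2, did so in both tables whichever replicate number was left out. Among WT of the Dohh table the count fell to 5 without replicate 1 and to 6 without replicate 2. There Suclg1, Pdha1, Acss1, Acss2, Cs and Fh1 did not pass without either (adjusted p up to 0.0952, 0.124, 0.0731, 0.116, 0.227 and 0.353), Me1 without replicate 1 (0.0918) and Pcx without replicate 2 (0.125). In the Odc table Pcx did not pass without replicate 4 (0.0534) and Pdha1 without replicate 1, 2 or 4 (up to 0.0938). Suclg1 was highest in TH2 cells, at 177 ± 12.7 CPM (SD, n = 4) and 202 ± 9.04 CPM (SD, n = 3), 1.02 ± 0.07 and 1.02 ± 0.21 (SE) above the mean of the other subsets on the log2 scale (edgeR adjusted p = 7.03e-12 and 0.000868). Suclg2, the subunit that pairs with it in the GTP-specific form, was instead highest in Treg cells (0.72 ± 0.13 and 1.33 ± 0.14). Treg cells also had the highest WT Pcx (0.95 ± 0.22 and 0.88 ± 0.21), Acss2 (1.06 ± 0.19 and 0.83 ± 0.20), Mpc1 (0.53 ± 0.10 and 0.85 ± 0.14) and Pdha1 (0.28 ± 0.07 and 0.43 ± 0.09). The order of WT Me1 was TH1 and TH2 above TH17 and Treg cells, with 4.33 to 11 CPM in TH1 and 0.230 to 0.699 CPM in Treg cells of the Odc table. Me2, its mitochondrial relative, was higher in TH17 and Treg than in TH1 and TH2 cells of both tables, highest in Treg cells of the Odc table (409 ± 44.7 CPM, SD, n = 4) and in TH17 cells of the Dohh table (278 ± 21.7 CPM, SD, n = 3). Acss1 was highest in TH17 cells (0.96 ± 0.23 and 1.22 ± 0.26) and Cs in TH1 cells (0.27 ± 0.07 and 0.42 ± 0.12). Fh1 was lowest in TH17 cells (-0.49 ± 0.12 and -0.40 ± 0.12). Mdh1 was lowest in TH1 cells of the Dohh table (-0.65 ± 0.13) and low alike in TH1 and TH17 cells of the Odc table (-0.41 ± 0.08 and -0.39 ± 0.08), and TH2 and Treg cells were within their spread of each other in the Odc table (334 ± 46.9 CPM and 308 ± 30.8 CPM, SD, n = 4). The libraries of the highest or lowest subset overlapped those of another subset in the Odc table for Suclg2, Acss2, Mpc1, Pdha1, Acss1, Cs, Fh1, Me2 and Me1, and in the Dohh table for Cs and Me1. Acly differed among subsets in the Dohh table (adjusted p = 0.0267, and up to 0.421 without replicate 1 or 2), and in the Odc table its highest subset was 1.04 times the lowest. As shares of the 37, WT Treg cells were higher than the other subsets for 37.8% of members (Odc table) and 24.3% (Dohh table), where 24.2% and 11.8% of all genes were.

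**Figure D4:**
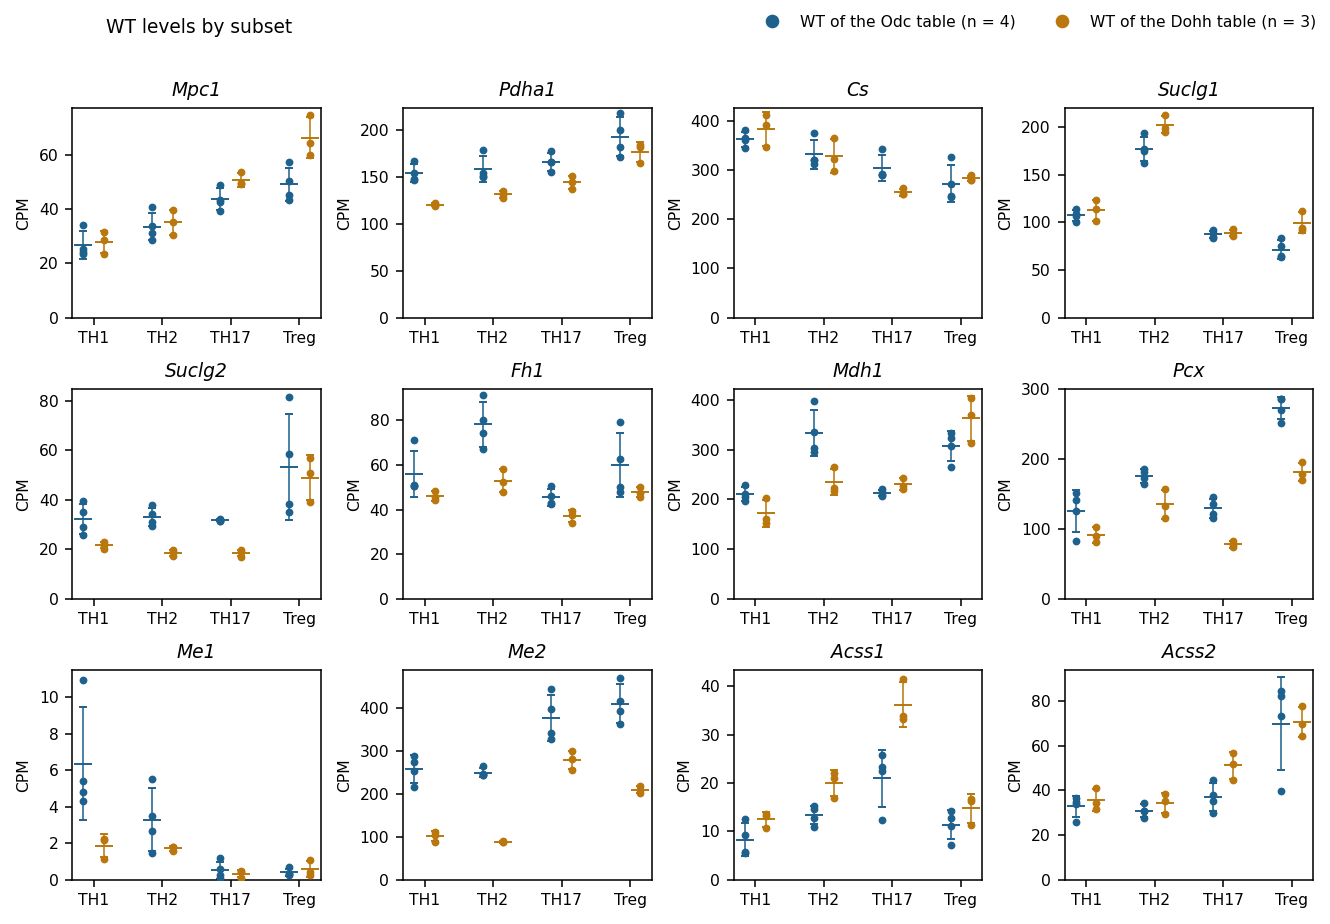
CPM in WT libraries (points) with mean and SD (bars) of the 12 members that differed among subsets in both tables, Odc table in blue (n = 4 per subset) and Dohh table in orange (n = 3 per subset); axes start at 0. Suclg1 stands highest in TH2 cells, Suclg2, Pcx and Acss2 in Treg cells and Acss1 in TH17 cells of both tables, and Me1 is near 0 in TH17 and Treg cells.

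Whether the change with genotype differed between subsets was tested by the interaction, which 13 members passed in the Odc table (35.1%, against 34.8% of all genes) and 8 in the Dohh table (21.6%, against 17.9%). In the Odc table these were Mpc1, Dld, Pdk3, Pdp1, Aco1, Ogdh, Dlst, Suclg1, Sdhc, Mdh1, Acly, Acss1 and Acss2, and in the Dohh table Dlat, Pdk1, Idh1, Idh2, Suclg2, Mdh1, Me2 and Acss1. In the Odc table Pdp1 and Mdh1 passed whichever replicate number was left out (adjusted p = 7.93e-06 and 2.52e-05), and the count fell to 2 without replicate 2 and to 5 without replicate 3. Libraries of 1 genotype that share a number deviated together across subsets, and with that number as a block within genotype 23 members passed in the Odc table, including all of the 13 (52.9% of genes), and 10 in the Dohh table, including all of the 8 but Dlat (19.0% of genes). Pdp1 rose in TH2 cells alone, and Mdh1 fell in TH2 and Treg cells alone. In the Dohh table Me2 passed whichever replicate number was left out (adjusted p = 3.76e-06), and the count fell to 3 without replicate 1, to 1 without replicate 2, and to 3 without the libraries with high myeloid markers, which kept Me2 (0.000518), Suclg2 (0.00792) and Idh1 (0.0348). Acss1 and Mdh1 passed in both tables with all libraries. Without replicate 2, Acss1 did not pass in the Odc table (0.0887), and without replicate 1 or 2 neither did so in the Dohh table (up to 0.248 and 0.245). Mpc2, Idh3a, Sdhb and Fh1 passed in neither, with adjusted p-values of 0.734, 0.65, 0.846 and 0.531 in the Odc table, and of 0.327, 0.605, 0.489 and 0.885 in the Dohh table, which does not show that their changes were equal.

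The mean change over the 4 subsets was compared between the 2 deficiencies in 1 edgeR fit of both tables. It differed for 23 members (62.2%, against 49.8% of the 12924 genes tested in both), lower with Odc-/- labels for 17 (45.9%, against 26.5%) and higher for 6 (16.2%, against 23.3%). The tables hold separate WT libraries, so a difference between the 2 experiments and a difference between the 2 genes cannot be told apart. Idh1 changed on average by -0.94 with Odc-/- and 0.60 with Dohh-/- labels, a difference of -1.56 ± 0.18 (SE), adjusted p = 1.98e-09. Pdk3 changed by -0.23 with Odc-/- and 0.59 with Dohh-/- labels, a difference of -0.85 ± 0.08 (SE), adjusted p = 1.83e-11. The mean changes of both were below 0 with Odc-/- and above 0 with Dohh-/- labels, as were those of Acss1 (-0.86 with Odc-/- and 0.24 with Dohh-/- labels, adjusted p = 0.000155) and Mdh1 (-0.34 with Odc-/- and 0.15 with Dohh-/- labels, adjusted p = 3.78e-06). Opposite signs the other way round were seen for Mpc1 (0.27 with Odc-/- and -0.20 with Dohh-/- labels, adjusted p = 0.000638), Pdp1 (0.34 with Odc-/- and -0.08 with Dohh-/- labels, 0.0284), Idh2 (0.05 with Odc-/- and -0.33 with Dohh-/- labels, 0.00638) and Idh3b (0.07 with Odc-/- and -0.20 with Dohh-/- labels, 0.00416). With the TH17 and Treg values taken without the 4 libraries with high myeloid markers, the mean change in libraries labelled Dohh-/- was 0.21 for Idh1, 0.05 for Acss1, 0.60 for Pdk3 and 0.21 for Mdh1. The mean changes of the 3 genes of cytosolic acetyl-CoA supply were lower with Odc-/- labels. Slc25a1 differed by -0.57 ± 0.13 (SE), adjusted p = 0.000193, Acly by -0.42 ± 0.12 (SE), adjusted p = 0.00339 and Acss2 by -1.0 ± 0.20 (SE), adjusted p = 4.61e-05. Among members that fell in all 8 comparisons, Pdk1 fell more with Odc-/- labels (-0.57 ± 0.22 (SE), adjusted p = 0.0277), and Pdk2 (1.36 ± 0.23 (SE), adjusted p = 2.9e-06) and Pcx (0.85 ± 0.21 (SE), adjusted p = 0.000959) fell more with Dohh-/- labels. Me1 rose more with Dohh-/- labels (-2.0 ± 0.38 (SE), adjusted p = 2.16e-05). Sucla2 (-0.49 ± 0.10 (SE), adjusted p = 0.000105) and Sdhc (-0.48 ± 0.08 (SE), adjusted p = 1.57e-06) were likewise higher there. Of the 23 differences 16 passed whichever replicate number of either table was left out, and those of Idh2, Fh1, Mdh2, Me2, Pdk1, Pdp1 and Sdhb did not, with adjusted p-values of up to 0.0518, 0.133, 0.105, 0.0692, 0.157, 0.119 and 0.161. With the number of a genotype as a shared correlation in limma (0.166), 18 of the 23 passed (against 39.8% of genes) and Fh1, Mdh2, Pdhb, Pdp1 and Sdhb did not, where limma without it passed all 23. Without the libraries with high myeloid markers, Dld, Fh1, Pdhb and Pdp1 did not pass (0.0922, 0.0548, 0.0783 and 0.0714) and Idh1, Acly and Acss2 did (3.41e-07, 7.61e-05 and 7.38e-05).

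**Figure D5:**
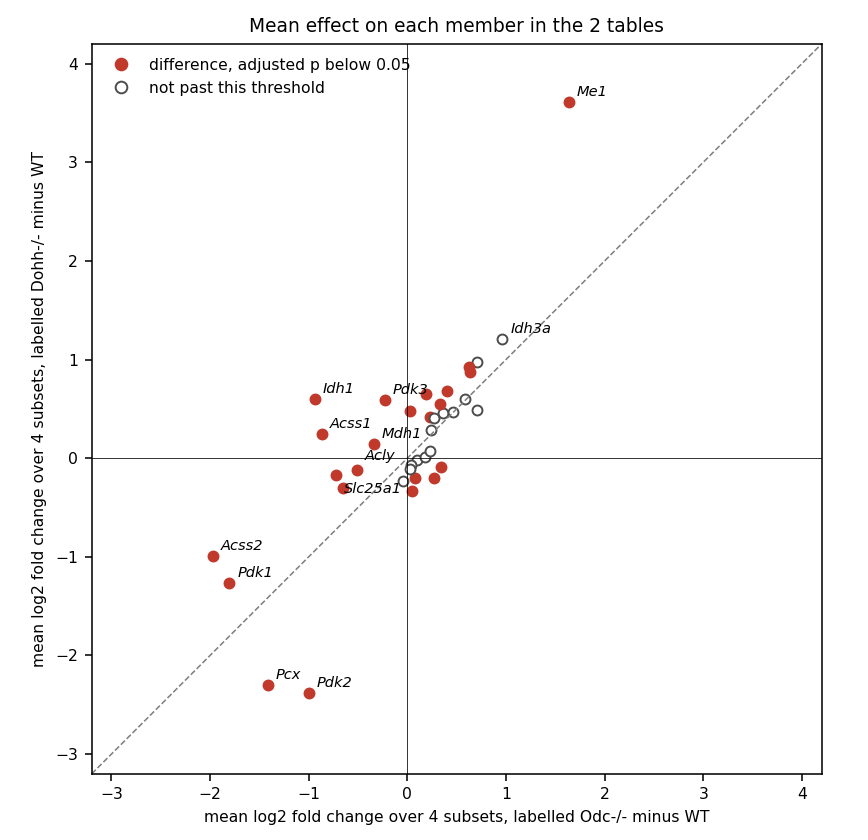
Mean log2 fold change over the 4 subsets of each member in libraries labelled Odc-/- (horizontal axis) and Dohh-/- (vertical axis) against WT of the same table, with the dashed line at equal change; filled points differed between the tables at an edgeR adjusted p-value below 0.05. Idh1, Pdk3, Acss1 and Mdh1 lie at the upper left and Mpc1, Pdp1, Idh2 and Idh3b at the lower right, with opposite signs, and Me1 lies farthest above the line.

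Other genes of the pathway were counted in 5 lists, beside all genes tested, of which 25.6% to 32.9% were higher and 22.2% to 29.3% lower in the 4 subsets of the Odc table and 23.8% to 28.4% higher and 21.5% to 25% lower in those of the Dohh table. Of 11 genes of glutamine and glutamate entry, all tested, 3, 5, 2 and 3 were higher and 1, 2, 4 and 5 lower in TH1, TH2, TH17 and Treg cells labelled Odc-/-, and 1, 3, 1 and 3 were higher and 3, 1, 4 and 3 lower in those labelled Dohh-/-. Gls2, a glutaminase, was lower past 2-fold in all 8 comparisons (log2 fold changes -1.80, -1.66, -1.56 and -1.64 in TH1, TH2, TH17 and Treg cells of the Odc table and -2.03, -1.25, -2.81 and -1.02 in TH1, TH2, TH17 and Treg cells of the Dohh table). Glud1, glutamate dehydrogenase, was lower past 2-fold in Treg cells labelled Odc-/- (-1.21) and in TH17 and Treg cells labelled Dohh-/- (-1.32 and -1.71). Slc1a5, a glutamine transporter, was higher in all 8 comparisons (1.13, 1.22, 0.45 and 0.93 in TH1, TH2, TH17 and Treg cells of the Odc table and 0.81, 1.40, 0.71 and 0.57 in TH1, TH2, TH17 and Treg cells of the Dohh table). Gpt2, mitochondrial alanine aminotransferase, was lower in Treg cells labelled Odc-/- (-1.05) and higher in TH2 and Treg cells labelled Dohh-/- (1.38 and 1.82). Of 5 malate-aspartate and 2-oxoglutarate carriers 1 to 3 were higher and at most 1 lower in each comparison, and Slc25a10, the dicarboxylate carrier, rose past 2-fold in all 4 subsets labelled Dohh-/- (2.03, 1.05, 1.58 and 2.00 in TH1, TH2, TH17 and Treg cells). Of a list of lipoate synthesis and succinate dehydrogenase assembly factors that also held Pdpr, Pdp2 and Pdk4, regulators of pyruvate dehydrogenase, 10 were tested in the Odc and 9 in the Dohh table, and 2 to 5 were higher and 1 or 2 lower in each comparison. Pdpr, a regulatory subunit of the pyruvate dehydrogenase phosphatase, fell past 2-fold in TH1 and Treg cells labelled Odc-/- (-1.28 and -1.10) and in all 4 subsets labelled Dohh-/- (-1.44, -1.82, -2.01 and -1.60 in TH1, TH2, TH17 and Treg cells). Lipt2, an octanoyltransferase of lipoate synthesis, rose past 2-fold in TH1, TH2 and Treg cells labelled Odc-/- (1.21, 1.15 and 2.40). Of the 2 enzymes that remove 2-hydroxyglutarate at most 1 was called in any comparison. Of 8 genes of acetyl-CoA use 0 to 3 were higher and 0 to 3 lower. Acaca, acetyl-CoA carboxylase, rose past 2-fold in TH2 cells of both tables (1.15 and 1.24), Hmgcs1, of sterol synthesis, fell past 2-fold in Treg cells labelled Odc-/- (-1.21) and rose past it in TH17 cells labelled Dohh-/- (1.23), and Nat8l, which makes N-acetylaspartate, rose in TH17 and Treg cells labelled Odc-/- (2.92 and 3.46). Nat8l did not pass in TH17 and Treg cells labelled Dohh-/- (-1.02 and -0.14). On the 1 library labelled Dohh-/- left per subset without those with high myeloid markers, Nat8l was at -2.76 and -5.95 in TH17 and Treg cells on the log2 scale. In these subsets Glud1 was at -1.13 and -1.67, Slc25a10 at 1.49 and 1.77 and Pdpr at -1.86 and -1.41. Gls2 was at -2.47, Slc1a5 at 0.76 and Hmgcs1 at 1.5 in TH17 cells, and Gpt2 at 2.27 in Treg cells. Gls2 (-0.82, adjusted p = 0.2) and Slc1a5 (0.52, adjusted p = 0.0553) did not pass in Treg cells there.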

How the data were processed

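RNA libraries of 56 samples were made with a TruSeq stranded mRNA kit, of which 55 were analysed here (replicate 1 of TH2 cells labelled Odc-/- was not). Per the methods and the labels' processing notes, the authors trimmed and mapped the reads to mm10 with deepTools and STAR, and featureCounts then gave counts. The deposited values are those unnormalized counts in 2 tables of whole numbers, which the authors tested with DESeq2. Versions and the strand setting of the counting were not given in the sources used here.

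Counts were tested in R 4.3.3 with edgeR 4.0.16, separately in each table, after filterByExpr over the 8 groups (13839 and 13897 genes kept) and TMM scaling, with robust quasi-likelihood fits and 1 mean per group. P-values were adjusted by Benjamini-Hochberg over all genes, a gene was called below 0.05, and past 2-fold means also an absolute log2 fold change above 1, the thresholds of the study. CPM are counts scaled to 1000000 by the TMM-scaled library size, and fold changes are on the log2 scale. No pair of libraries of a group (69 pairs) agreed within sampling noise (chi-square per degree of freedom at least 2.53). In the Odc table WT pairs with replicate 4 stood at 11.1 to 40.4 and the other WT pairs at 2.53 to 12.5. The highest value was 142, for replicates 2 and 3 of TH1 cells labelled Dohh-/-. Nothing in the labels names the animals, so p-values measure the spread between these samples. Intervals of count ratios are exact binomial and cover counting error alone.

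The members, lists, tests and alternatives were chosen with earlier results of these data known. Named were all members, values in every library for Acly and for the member of each role with the largest mean absolute log2 fold change among those called in at least 4 of 8 comparisons, folds in each comparison for members past 2-fold in at least 2, and other pathway genes past 2-fold in at least 2. Per-library values of other members were chosen after their values were seen. Markers of T, TH1, TH2, TH17, Treg, basophil and mast, myeloid, B, CD8 T and NK, γδ T and erythroid cells were summed per library. Erythroid markers reached 28.7 CPM in 1 library and at most 1.55 CPM in the Odc table. Genes were placed with GENCODE vM21 and sequences are from RefSeq, both on GRCm38. Alternatives were RLE factors, DESeq2 1.42.0, no filter, a mean count of at least 50, the 2 groups compared alone, a replicate block, an adjusted p-value below 0.01 and each library left out. Leaving out 4 libraries with high myeloid markers and a replicate block within genotype (limma 3.58.1 with a shared correlation for the mean over subsets) were added after the data were seen. 1 marker gene is not reported here. Scripts were tested on simulated data.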

Additional observations from a re-analysis of the deposited data

Results flagged for a closer look

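A single library stood far from the other 3 of its group for these members of the Odc table, and groups of 3 libraries were not examined. In WT TH2 cells Pdha1 in replicate 4 was at 179 CPM with the others at 149.8 to 154 CPM, Pdhx in replicate 2 was at 9.74 CPM with the others at 13.8 to 14.6 CPM, Cs in replicate 4 was at 376 CPM with the others at 312 to 321 CPM, Me2 in replicate 1 was at 264 CPM with the others at 242 to 246 CPM and Slc25a1 in replicate 1 was at 98.1 CPM with the others at 139.8 to 143 CPM. In WT TH1 cells Pdhb in replicate 4 was at 72.5 CPM with the others at 61.9 to 63.4 CPM, Idh3a in replicate 4 was at 77.0 CPM with the others at 45.7 to 50.4 CPM, Fh1 in replicate 4 was at 71.4 CPM with the others at 50.5 to 51.0 CPM and Me1 in replicate 4 was at 11 CPM with the others at 4.33 to 5.41 CPM. In WT TH17 cells Pdk1 in replicate 4 was at 247 CPM with the others at 391 to 410.4 CPM, Cs in replicate 4 was at 344 CPM with the others at 290.5 to 292 CPM, Idh3a in replicate 4 was at 90.7 CPM with the others at 49.5 to 56.0 CPM and Sdhb in replicate 4 was at 108 CPM with the others at 84.2 to 86.8 CPM. In WT Treg cells Pdk1 in replicate 4 was at 261 CPM with the others at 410.1 to 424 CPM and Dlst in replicate 4 was at 141 CPM with the others at 103 to 109 CPM. In TH17 cells labelled Odc-/- Pdp1 in replicate 3 was at 17.1 CPM with the others at 21.3 to 21.5 CPM and Me1 in replicate 1 was at 1.20 CPM with the others at 0.781 to 0.832 CPM. In Treg cells labelled Odc-/- Pdp1 in replicate 1 was at 24.6 CPM with the others at 19.0 to 19.7 CPM. In TH1 cells labelled Odc-/- Idh3a in replicate 1 was at 78.5 CPM with the others at 126 to 131 CPM, Dlst in replicate 1 was at 145 CPM with the others at 189 to 195 CPM, Sdhd in replicate 2 was at 143 CPM with the others at 128 to 129 CPM, Pcx in replicate 1 was at 74.0 CPM with the others at 24.1 to 29.4 CPM and Slc25a1 in replicate 1 was at 89.5 CPM with the others at 56.8 to 61.9 CPM. By chance about 1 group in 20 is expected to show such a library, and 23 of 259 groups did.

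By edgeR's interaction test the change with genotype differed between subsets of the Odc table for Mpc1 (adjusted p = 0.0355), Dld (adjusted p = 0.0421), Pdk3 (adjusted p = 0.00618), Pdp1 (adjusted p = 7.93e-06), Aco1 (adjusted p = 0.00365), Ogdh (adjusted p = 0.00967), Dlst (adjusted p = 0.0204), Suclg1 (adjusted p = 0.0475), Sdhc (adjusted p = 0.00823), Mdh1 (adjusted p = 2.52e-05), Acly (adjusted p = 0.0221), Acss1 (adjusted p = 0.00282) and Acss2 (adjusted p = 0.0141). Between subsets of the Dohh table it differed for Dlat (adjusted p = 0.0356), Pdk1 (adjusted p = 0.0335), Idh1 (adjusted p = 0.00889), Idh2 (adjusted p = 0.0229), Suclg2 (adjusted p = 0.000664), Mdh1 (adjusted p = 0.0117), Me2 (adjusted p = 3.76e-06) and Acss1 (adjusted p = 0.0253). The mean change over subsets was lower with Odc-/- than with Dohh-/- labels, as a difference of log2 fold changes, for Pdhb (-0.21, adjusted p = 0.0133), Dld (-0.24, adjusted p = 0.0103), Pdk1 (-0.57, adjusted p = 0.0277), Pdk3 (-0.85, adjusted p = 1.83e-11), Idh1 (-1.56, adjusted p = 1.98e-09), Sucla2 (-0.49, adjusted p = 0.000105), Sdhb (-0.32, adjusted p = 0.0253), Sdhc (-0.48, adjusted p = 1.57e-06), Fh1 (-0.26, adjusted p = 0.0316), Mdh1 (-0.51, adjusted p = 3.78e-06), Mdh2 (-0.31, adjusted p = 0.0192), Me1 (-2.0, adjusted p = 2.16e-05), Me2 (-0.37, adjusted p = 0.00421), Slc25a1 (-0.57, adjusted p = 0.000193), Acly (-0.42, adjusted p = 0.00339), Acss1 (-1.13, adjusted p = 0.000155) and Acss2 (-1.0, adjusted p = 4.61e-05). It was higher with Odc-/- labels for Mpc1 (0.44, adjusted p = 0.000638), Pdk2 (1.36, adjusted p = 2.9e-06), Pdp1 (0.40, adjusted p = 0.0284), Idh2 (0.35, adjusted p = 0.00638), Idh3b (0.25, adjusted p = 0.00416) and Pcx (0.85, adjusted p = 0.000959).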

How the results depend on the processing

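The counts of members called in each comparison stayed within 1.5 times their reported values under DESeq2, RLE size factors, no filter on low counts and a mean count of at least 50, and no called member value changed direction under any alternative. With an adjusted p-value below 0.01, members lower in TH2 cells labelled Odc-/- were 7, members higher in TH17 cells 4 (Odc table) and 8 (Dohh table), members lower in Treg cells labelled Dohh-/- 4, and members whose change differed between subsets 7 (Odc table) and 3 (Dohh table). With the 2 groups compared alone, members higher were 6 in Treg cells labelled Odc-/- and 6 in TH1 cells labelled Dohh-/-, and members lower in TH2 cells labelled Dohh-/- were 6. The cause was not tested. Without the 4 libraries with high myeloid markers, members of the Dohh table called higher were 6 in TH17 and 6 in Treg cells, members lower in Treg cells 3, and members whose change differed between subsets 3, with 1 library left in each of the 2 groups labelled Dohh-/-. With single libraries or replicate numbers left out, members lower in TH2 cells labelled Odc-/- ranged from 7 (without Odc-/- replicate 2) to 11, members differing among WT subsets of the Dohh table from 5 to 16, and members whose change differed between subsets from 2 to 11 (Odc table) and from 1 to 6 (Dohh table). With the replicate number as a block, 180 of the 182 calls among the 296 fold changes were kept, 2 were lost and 10 gained. Under the block, members higher in TH1, TH2, TH17 and Treg cells labelled Odc-/- were 18, 20, 10 and 14, against 30.7%, 30.3%, 28.6% and 34.8% of all genes. Members lower were 9, 10, 11 and 11, against 29.1%, 29.6%, 24.1% and 28.4%. The counts of the Dohh table moved by at most 1. Libraries of both genotypes with the same number had a median r of 0.01 over 15 Odc pairs (-0.09 to 0.20) and -0.01 over 12 Dohh pairs (-0.03 to 0.14). With so few libraries per group these values cannot exclude that they were paired, and the labels do not name the animals. Libraries of 1 genotype with the same number in different subsets did deviate together (median r 0.28 over 45 Odc pairs and 0.16 over 36 Dohh pairs, against -0.11 and -0.10 for different numbers), and the tests across subsets treat them as independent. A replicate block within genotype was added after the data were seen. With it, members whose change differed between subsets of the Odc table were 23, against 52.9% of all genes. Those differing among WT subsets were 29 (Odc table) and 15 (Dohh table), against 81.5% and 41.0% of all genes. Those whose mean change differed between the deficiencies were 18, against 39.8% of all genes. Without the filter 26 of the 182 calls were lost. Me1 in TH17 and Treg cells stands on few counts and is the member that depth limits most.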
